A study of Danio rerio with 18 samples.

Results

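Ventricles of adult zebrafish sampled 7 days after cryoinjury (7 dpci) were compared with ventricles in which cardiomyocytes carried the oncogene HRAS and the fish had received rapamycin (GFP-HRAS rapamycin). The comparison took the 3 libraries of each group, 6 of the 18 samples in the labels and of the 15 analysed here, by joining a count table of the injury experiment with one of the transgenic experiment on the gene identifier. The 7 dpci fish were of the strain cmcl2:Gal4-ERT2, which carries only the driver, a tamoxifen-inducible Gal4, and the labels give them no treatment. The GFP-HRAS rapamycin fish were of the strain cmcl2:Gal4-ERT2;UAS:GFP-HRAS, were not injured, and received 4 pulses of 2.5 uM 4-hydroxytamoxifen (4-OHT) and 0.5 uM rapamycin over 16 days. Both groups therefore share the driver, whose promoter is active in cardiomyocytes, so the oncogene is made in that cell type. The other 3 analysed groups, of 3 libraries each, are used for orientation: GFP-HRAS DMSO (the same line and 4-OHT with 0.05% DMSO), RFP rapamycin and RFP DMSO (a UAS:RFP line with the same 4-OHT and either drug or vehicle). Injury, strain, 4-OHT, rapamycin and the count table all differ together between 7 dpci and GFP-HRAS rapamycin, and their parts in any difference cannot be told apart. The labels do not say whether a library is one animal or a pool, so each p-value measures only the spread between these libraries.

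A zebrafish ventricle replaces tissue lost to a freezing injury. Epicardial cells and fibroblasts lay down a transient matrix, leukocytes clear the dead tissue, and cardiomyocytes at the wound border return to the cell cycle. HRAS is a small GTPase that signals through the RAF, MEK and ERK kinases, and active ERK switches on feedback inhibitors and immediate-early transcription factors. Rapamycin inhibits the kinase TOR, which promotes ribosome production and protein synthesis. The title of the series sets oncogene-driven cardiac growth beside regeneration, and this comparison asks how hearts in these states differ when the oncogene acts under TOR inhibition.

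Library totals were 18105533 to 20003711 counts in 7 dpci and 15861618 to 19695947 in GFP-HRAS rapamycin, with 20781 to 20966 and 19777 to 20848 genes detected. Mitochondrially encoded genes took 16.4%, 18.5% and 21.2% of counts in the 7 dpci libraries, against 13.5%, 16.2% and 19.5% in the GFP-HRAS rapamycin libraries. The difference of 2.31 percentage points had a two-sided exact permutation p of 0.4, where 3 against 3 libraries cannot go below 0.1. On the first principal component of all 15 libraries, which held 64.7% of the variance, the 7 dpci libraries lay at 25.3, 28.5 and 23.2 and the GFP-HRAS rapamycin libraries at 44.5, 32.8 and -11.9. Replicate 3 of GFP-HRAS rapamycin thus stood apart from its group, towards the RFP hearts, and counts without it are given beside the results below. The second component, with 11.6%, separated the groups: -40.4, -38.9 and -36.8 in 7 dpci, against 16.0, 23.0 and 15.2 in GFP-HRAS rapamycin. The summed level of 6 cardiomyocyte marker genes was 35149 to 36822 CPM in 7 dpci and 26390.2 to 35633 CPM in GFP-HRAS rapamycin, and that of 3 endothelial markers 671 to 773 CPM in 7 dpci and 689.8 to 857 CPM in GFP-HRAS rapamycin. The 4 atrial marker genes tested had a mean log2 CPM of 6.25, 6.46 and 5.96 in 7 dpci, against 4.41, 5.28 and 5.44 in GFP-HRAS rapamycin and 6.45, 6.34 and 5.89 in RFP DMSO, with no overlap between the compared groups. They are 2 BMP10 genes, NR2F1 and myh6, with log2 fold changes of 1.40, 1.90, 1.28 and -0.27 (7 dpci minus GFP-HRAS rapamycin). The atrial myosin myh6 thus went the other way, and its groups overlapped. The HRAS genes of the annotation were not called between the groups in the fit over all libraries. HRAS (ENSDARG00000098497) had 3.84, 3.66 and 3.12 CPM in 7 dpci and 8.73, 7.41 and 3.67 CPM in GFP-HRAS rapamycin (log2 fold change -0.90, adjusted p = 0.0743). HRAS (ENSDARG00000098497) passed the threshold without GFP-HRAS rapamycin library 3 or in DESeq2 (adjusted p 0.0144 to 0.246 over the alternatives). Its level was 6.21, 8.32 and 7.73 CPM in GFP-HRAS DMSO and 1.57, 1.35 and 1.99 CPM in RFP DMSO. The other, HRAS (ENSDARG00000005651), had 9.68, 8.62 and 11.8 CPM in 7 dpci and 8.53, 10.5 and 12.9 CPM in GFP-HRAS rapamycin (-0.08, adjusted p = 0.864). Both overlapped. Whether reads of the transgene count towards either gene is not given in the sources used here.

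**Figure D1:**
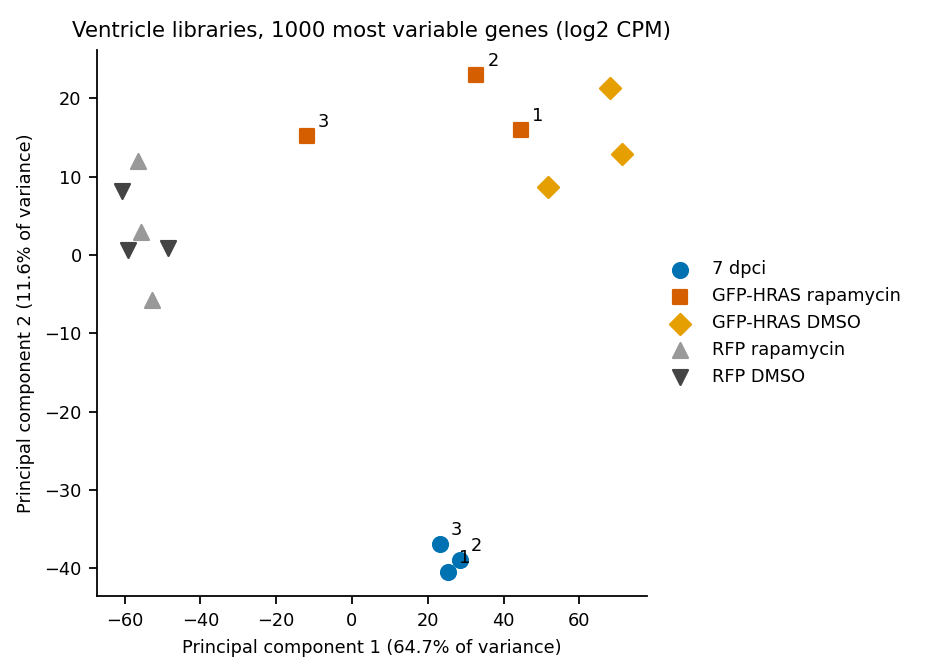
Principal components 1 (x axis, 64.7% of variance) and 2 (y axis, 11.6%) of 15 ventricle libraries, from log2 CPM of the 1000 most variable genes; each symbol is a library and the numbers are replicates. The 7 dpci libraries sit together at -36.8 to -40.4 on component 2, apart from all other groups, while GFP-HRAS rapamycin replicate 3 lies at -11.9 on component 1.

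Levels are given as CPM, counts scaled to library size, with trimmed-mean (TMM) factors, and a gene was called at a Benjamini-Hochberg adjusted p under 0.05 in edgeR's quasi-likelihood test over all genes. A signed value beside an adjusted p is a log2 fold change, 7 dpci minus GFP-HRAS rapamycin unless another pair is named. Of 16421 genes tested, 3046 (18.5%) were called, 1373 (8.36%) higher and 1673 (10.2%) lower in 7 dpci. The counts of the gene lists below are to be read beside these shares. At least 2-fold differences made up 1076 of the higher calls (6.55% of genes tested) and 815 of the lower calls (4.96%). The median log2 fold change over all genes was -0.01, with an interquartile range of -0.47 to 0.51, and in 6566 genes (40.0%) the 2 groups did not overlap. With library totals in place of TMM scaling the split was 1636 higher and 965 lower (62.9% higher, against 45.1% with TMM), as the median of all genes moved by 0.111 on the log2 scale; differences below are relative to that median. Leaving out a library changed the number of calls: 1405, 1518 and 1621 without 7 dpci replicate 1, 2 or 3 in turn, and 2610, 1472 and 3470 without GFP-HRAS rapamycin replicate 1, 2 or 3.

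**Figure D2:**
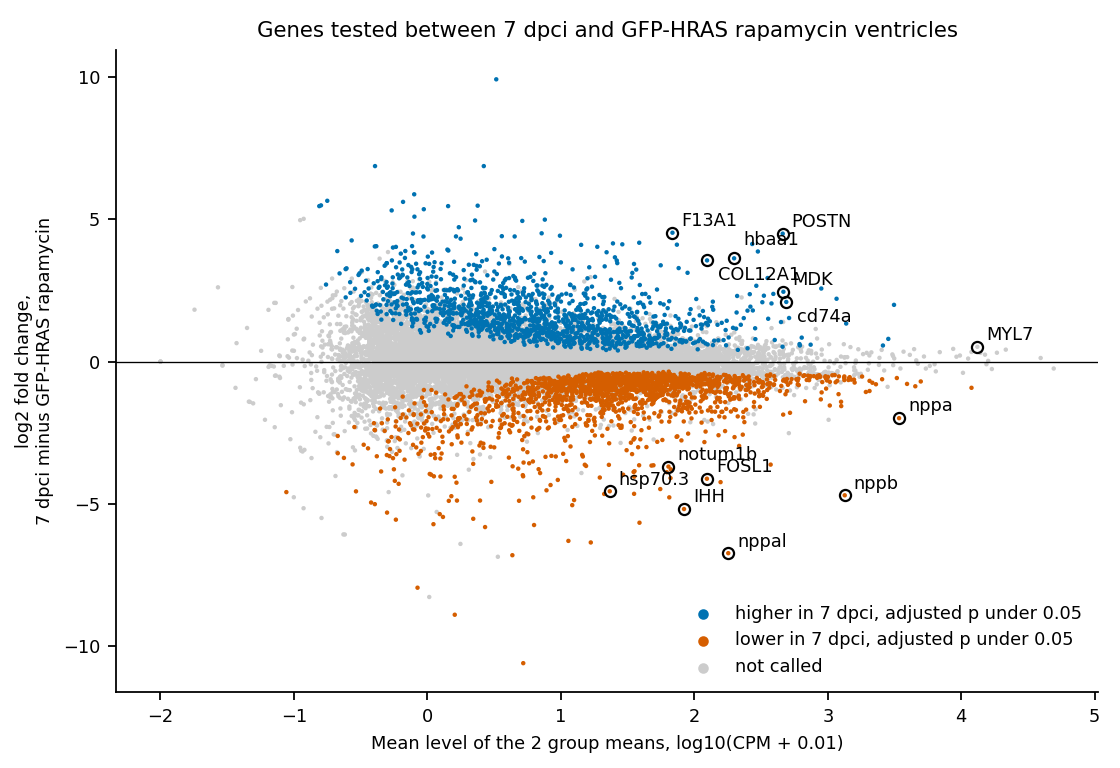
log2 fold change (y axis, 7 dpci minus GFP-HRAS rapamycin) against mean level (x axis, log10 of CPM + 0.01) of the 16421 genes tested; blue points are called higher and orange points lower in 7 dpci, and grey points are not called. POSTN and F13A1 stand near 4.50, nppb at -4.70 and nppal at -6.73, with other points beyond them at both ends, and MYL7 at 0.52 is not called.

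Most of the tested genes of fibrous extracellular matrix were higher in the injured hearts. Of 28 collagens and other fibrous matrix genes tested, 20 were higher and 1 was lower in 7 dpci, with a median log2 fold change of 2.08 (all genes -0.01); without GFP-HRAS rapamycin replicate 3 the count was 20 higher. Periostin, POSTN (ENSDARG00000104267), is a secreted protein of activated fibroblasts and measured 777, 775 and 1088 CPM in 7 dpci and 77.3, 27.0 and 12.5 CPM in GFP-HRAS rapamycin. Every 7 dpci library lay above every GFP-HRAS rapamycin library, and within the HRAS group replicate 1 was highest and replicate 3 lowest (log2 fold change 4.50 ± 0.944 SE, edgeR adjusted p = 0.00725). Relative to RFP DMSO hearts its log2 fold change was 5.68 (edgeR adjusted p = 0.00118) in 7 dpci and 1.19 (adjusted p = 0.305) in GFP-HRAS rapamycin; both values share the RFP DMSO libraries, as do all such pairs below, which are log2 fold changes throughout. The second periostin gene, POSTN (ENSDARG00000043806), was also higher (log2 fold change 1.78 ± 0.479 SE, edgeR adjusted p = 0.0221). POSTN (ENSDARG00000043806) lost its call without GFP-HRAS rapamycin library 2 or 3 or without 7 dpci library 1 or 2 (adjusted p 0.00282 to 0.0816 over the alternatives).

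Collagen XII, which coats collagen fibrils, has a pair of genes here. COL12A1 (ENSDARG00000019601) measured 216, 209 and 264 CPM in 7 dpci and 35.8, 19.6 and 3.06 CPM in GFP-HRAS rapamycin. The groups did not overlap and replicate 3 was again the lowest HRAS library (log2 fold change 3.56 ± 0.672 SE, edgeR adjusted p = 0.00426). Its paralogue COL12A1 (ENSDARG00000078322) showed 614, 734 and 620.2 CPM in 7 dpci and 207, 132 and 38.9 CPM in GFP-HRAS rapamycin, also without overlap (log2 fold change 2.38 ± 0.524 SE, edgeR adjusted p = 0.00905). Both lay above RFP DMSO in each group: the log2 fold change of the first was 7.94 (edgeR adjusted p = 0.000127) in 7 dpci and 4.38 (adjusted p = 0.00187) in GFP-HRAS rapamycin. That of the paralogue was 3.94 (edgeR adjusted p = 0.000399) in 7 dpci and 1.56 (adjusted p = 0.0363) in GFP-HRAS rapamycin.

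Fibronectin, a matrix glycoprotein of provisional wounds, followed. FN1 (ENSDARG00000006526) stood at 5375, 5448 and 4221 CPM in 7 dpci and 1739.7, 1161 and 877 CPM in GFP-HRAS rapamycin (log2 fold change 1.99 ± 0.342 SE, edgeR adjusted p = 0.00267). The lowest injured library was more than any HRAS library. The paralogue FN1 (ENSDARG00000019815) was higher as well (log2 fold change 2.38, edgeR adjusted p = 0.0262). FN1 (ENSDARG00000019815) lost its call without GFP-HRAS rapamycin library 2 or without 7 dpci library 1, 2 or 3 or when these 6 libraries were fitted on their own (adjusted p 0.00345 to 0.0973 over the alternatives). Lumican (LUM), a small proteoglycan that orders collagen fibrils, measured 41.7, 27.8 and 54.2 CPM in 7 dpci and 6.73, 1.27 and 0.428 CPM in GFP-HRAS rapamycin (log2 fold change 3.84 ± 0.720 SE, edgeR adjusted p = 0.00411). Elastin b (elnb) had 46.8, 15.4 and 18.3 CPM in 7 dpci and 3.19, 1.13 and 0.245 CPM in GFP-HRAS rapamycin (log2 fold change 4.10 ± 0.855 SE, edgeR adjusted p = 0.00698), and the spread among its injured libraries came from replicate 1. CILP2, a secreted protein known from cartilage matrix, reached 25.6, 43.5 and 37.1 CPM in 7 dpci and 4.39, 1.40 and 0.550 CPM in GFP-HRAS rapamycin (log2 fold change 4.03 ± 0.786 SE, edgeR adjusted p = 0.00508). None of these 3 genes overlapped between the groups, which the rule that picked them among the 15 largest differences required.

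The fibril-forming chain col1a1a gave a log2 fold change of 2.11 (edgeR adjusted p = 0.0107), and its relatives named after their values were seen gave 2.21 for COL1A1 (adjusted p = 0.0065) and 2.57 for COL1A2 (adjusted p = 0.00991). SERPINH1 (ENSDARG00000019949), the collagen chaperone of the endoplasmic reticulum, measured 87.2, 53.1 and 44.4 CPM in 7 dpci and 9.68, 7.34 and 4.22 CPM in GFP-HRAS rapamycin. The groups were fully apart (log2 fold change 3.12 ± 0.422 SE, edgeR adjusted p = 0.000871). The 1 lower collagen, COL14A1, also named after its value was seen, had a log2 fold change of -3.03 (adjusted p = 0.00887). It was present at 0.671, 0.647 and 0.383 CPM in 7 dpci libraries and 8.98, 4.07 and 0.978 CPM in GFP-HRAS rapamycin libraries.

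Of 32 fibroblast and matrix-remodelling genes, 11 were higher, 3 lower and 18 not called (median 1.14). Mean log2 CPM of this list overlapped, with 3.67, 3.78 and 4.27 in 7 dpci and 3.71, 3.10 and 1.86 in GFP-HRAS rapamycin. The counts were 7 without GFP-HRAS rapamycin replicate 2 or 3 for the higher genes and 0 without 7 dpci replicate 1, 2 or 3 and 1 and 0 without GFP-HRAS rapamycin replicate 1 or 2 in turn for the lower ones. TIMP2 (ENSDARG00000075261), an inhibitor of matrix proteases, was among the lower, with 38.6, 48.1 and 61.3 CPM in 7 dpci and 578, 542 and 31.7 CPM in GFP-HRAS rapamycin. HRAS replicate 3 lay just below the injured libraries and the other 2 HRAS libraries lay far above it (log2 fold change -2.96, edgeR adjusted p = 0.03). TIMP2 (ENSDARG00000075261) lost its call without GFP-HRAS rapamycin library 1 or 2 or without 7 dpci library 1, 2 or 3, when these 6 libraries were fitted on their own or with the replicate block (adjusted p 0.00138 to 0.106 over the alternatives). The other lower genes, named after their values were seen, were mmp13a (log2 fold change -3.01, adjusted p = 0.0225, lost without GFP-HRAS rapamycin library 2 or 3 or without 7 dpci library 1, 2 or 3), a collagenase, and vcana (log2 fold change -2.25, adjusted p = 0.0307, lost without GFP-HRAS rapamycin library 1 or 2 or without 7 dpci library 1, 2 or 3), a versican. THBS4 (ENSDARG00000020072), a thrombospondin, was higher (log2 fold change 3.49, adjusted p = 0.0248). THBS4 (ENSDARG00000020072) lost its call without GFP-HRAS rapamycin library 2 or 3 or without 7 dpci library 3 or when these 6 libraries were fitted on their own (adjusted p 0.00156 to 0.0992 over the alternatives). All 5 fibroblast marker genes were called higher, and their summed level was 1026 to 1335 CPM in 7 dpci and 53.5 to 192 CPM in GFP-HRAS rapamycin. Among them PDGFRA, a receptor of fibroblast lineages, had 25.9, 30.3 and 29.1 CPM in 7 dpci and 14.3, 7.74 and 5.20 CPM in GFP-HRAS rapamycin (log2 fold change 1.64 ± 0.330 SE, edgeR adjusted p = 0.00603). It was -0.87 (edgeR adjusted p = 0.0469) in 7 dpci and -2.52 (adjusted p = 0.000502) in GFP-HRAS rapamycin relative to RFP DMSO. Bulk RNA cannot tell fewer cells of a type from less RNA per cell, here or in the groups below.

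**Figure D3:**
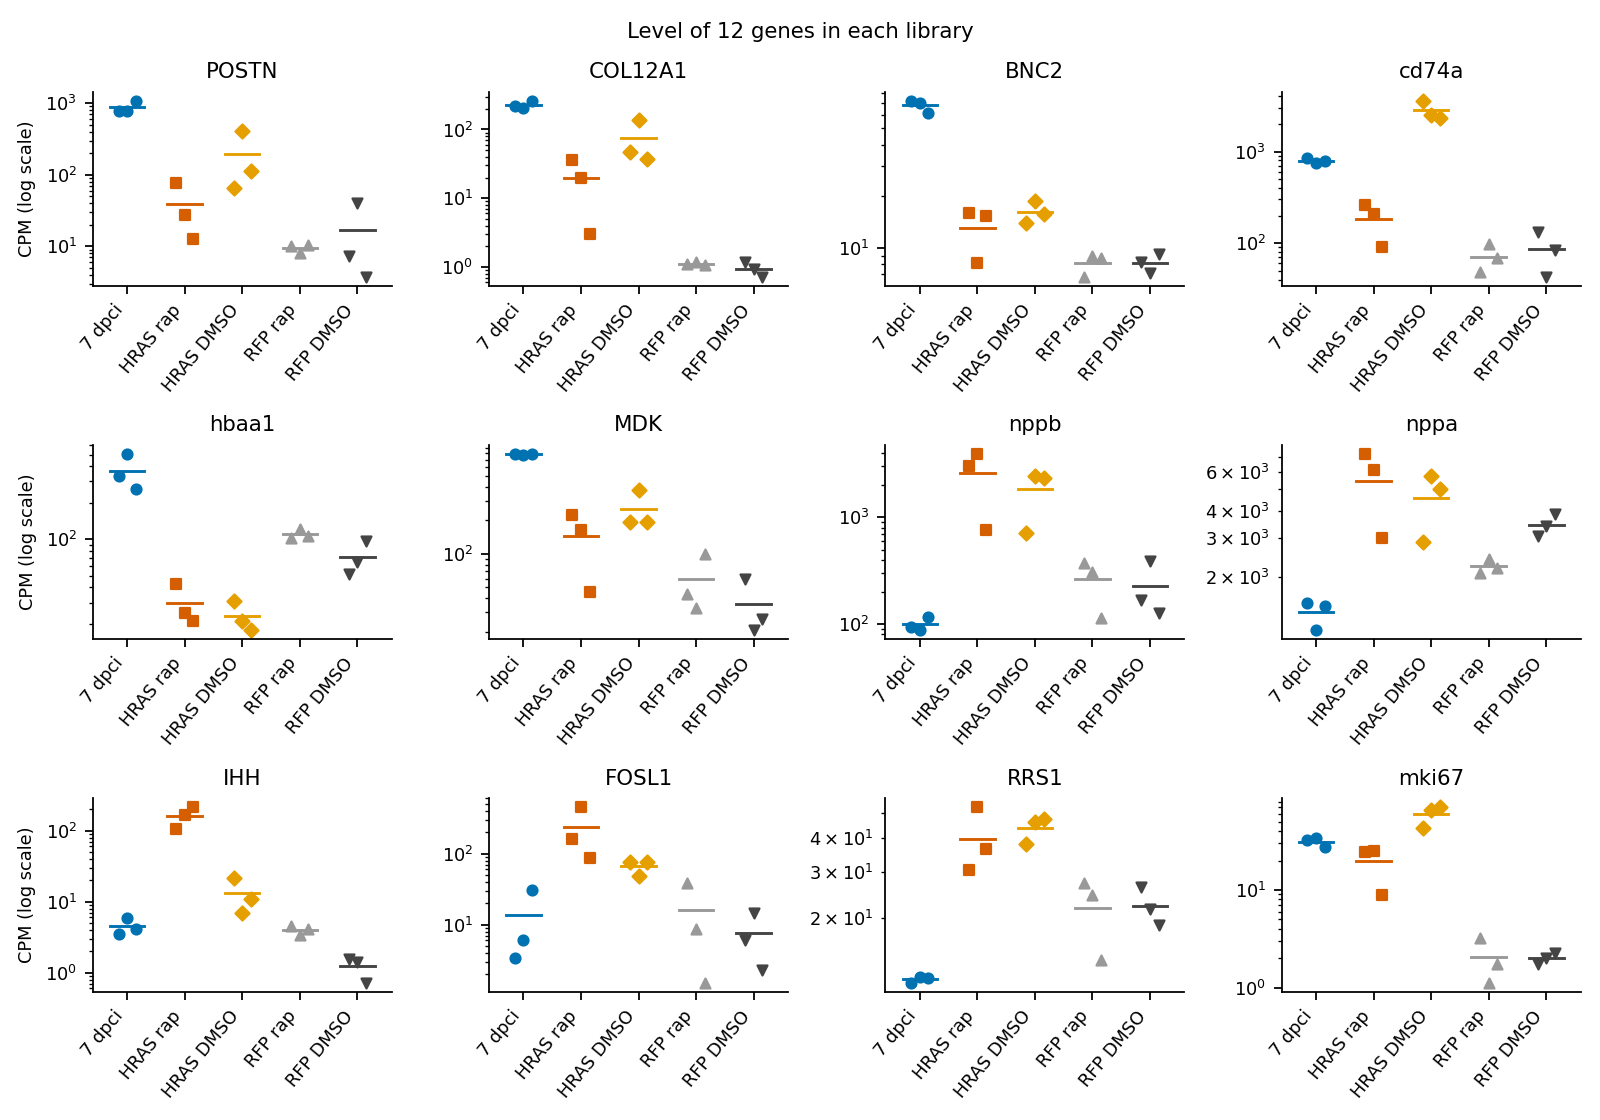
CPM (y axes, log scale) of 12 genes in every library of 5 groups; horizontal lines are group means. POSTN, COL12A1, BNC2, cd74a, hbaa1 and MDK are higher in all 3 blue 7 dpci libraries than in the 3 orange GFP-HRAS rapamycin libraries, nppb, nppa, IHH, FOSL1 and RRS1 are lower, and mki67 was not called.

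Most epicardial genes tested were higher in the injured hearts too. The list of epicardium and retinoic acid genes had 12 higher and 0 lower of 20 tested, a median of 1.20, and 10 higher without GFP-HRAS rapamycin replicate 3. Its mean log2 CPM was 5.24, 5.25 and 5.28 in the injured libraries, against 4.26, 4.13 and 3.97 in the GFP-HRAS rapamycin libraries. BNC2, a zinc-finger transcription factor, measured 72.5, 70.5 and 61.7 CPM in 7 dpci and 15.9, 8.21 and 15.3 CPM in GFP-HRAS rapamycin (log2 fold change 2.37 ± 0.236 SE, edgeR adjusted p = 0.000142). All 3 injured values were at least 61.7 CPM and no HRAS value passed 15.9. Relative to RFP DMSO, its log2 fold change was 3.06 (edgeR adjusted p = 2.23e-05) in 7 dpci and 0.68 (adjusted p = 0.0417) in GFP-HRAS rapamycin. The Wilms' tumour factor wt1b, a marker of activated epicardium, had 32.2, 38.4 and 34.6 CPM in 7 dpci and 6.83, 10.1 and 4.83 CPM in GFP-HRAS rapamycin (log2 fold change 2.27 ± 0.471 SE, edgeR adjusted p = 0.00682), again with no overlap. Clusterin (CLU), a secreted chaperone, stood at 682, 516 and 681 CPM in 7 dpci and 123, 95.5 and 27.2 CPM in GFP-HRAS rapamycin (log2 fold change 2.94 ± 0.625 SE, edgeR adjusted p = 0.00776). TCF21, a transcription factor of epicardium and cardiac fibroblasts, also did not overlap, with 6.18, 7.65 and 6.89 CPM in 7 dpci and 3.29, 2.20 and 2.75 CPM in GFP-HRAS rapamycin (log2 fold change 1.32 ± 0.292 SE, edgeR adjusted p = 0.00914). ALDH1A2, the enzyme that makes retinoic acid, was not called (log2 fold change -0.05, adjusted p = 0.929). Its values of 4.46, 8.41 and 5.69 CPM in 7 dpci and 4.04, 7.54 and 7.70 CPM in GFP-HRAS rapamycin overlapped. Osteopontin (spp1), a secreted phosphoprotein of wounds, had 3.12, 4.04 and 21.0 CPM in 7 dpci and 5.24, 1.13 and 0.122 CPM in GFP-HRAS rapamycin (log2 fold change 2.08, adjusted p = 0.16) and was not called. spp1 passed the threshold without GFP-HRAS rapamycin library 1 (adjusted p 0.0369 to 0.67 over the alternatives).

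Of 30 macrophage and general leukocyte genes, 15 were higher and 0 lower (median 1.27); the count was 8, 6 and 9 without 7 dpci replicate 1, 2 or 3 in turn and 7 without GFP-HRAS rapamycin replicate 2, and 10 without GFP-HRAS rapamycin replicate 3. The mean log2 CPM of the list was 3.77, 4.0 and 3.77 in 7 dpci, against 3.02, 2.56 and 1.87 in GFP-HRAS rapamycin, where replicate 3 was lowest. The leukocyte phosphatase ptprc (CD45) measured 49.1, 76.2 and 58.6 CPM in 7 dpci and 32.1, 28.9 and 17.1 CPM in GFP-HRAS rapamycin (log2 fold change 1.23 ± 0.277 SE, edgeR adjusted p = 0.00984). Progranulin a (grna), a secreted growth factor, had 113, 108 and 77.1 CPM in 7 dpci and 37.0, 28.9 and 15.1 CPM in GFP-HRAS rapamycin (log2 fold change 1.88 ± 0.415 SE, edgeR adjusted p = 0.0092). The signalling chain fcer1g gave 11.1, 11.5 and 8.59 CPM in 7 dpci and 4.29, 3.34 and 1.90 CPM in GFP-HRAS rapamycin (log2 fold change 1.70 ± 0.332 SE, edgeR adjusted p = 0.00508). For these 3 genes no library of either group crossed into the other. The mean log2 CPM of this list in GFP-HRAS DMSO was 4.51, 4.25 and 4.01, and in RFP DMSO 2.52, 1.87 and 1.74. The receptors of macrophage colony-stimulating factor were higher too, csf1ra by 1.36 and csf1rb by 2.05 on the log2 scale (edgeR adjusted p = 0.0374 and 0.0232). The call of csf1ra was lost without GFP-HRAS rapamycin library 2 or without 7 dpci library 1, 2 or 3 or when these 6 libraries were fitted on their own, and that of csf1rb without GFP-HRAS rapamycin library 2 or without 7 dpci library 1 or 2 or when these 6 libraries were fitted on their own.

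Genes of class II antigen presentation gave 5 higher and 0 lower of 10, a median of 1.57, and 6 higher without replicate 3. The mean log2 CPM of the list was 5.56, 5.45 and 5.44 in 7 dpci and 4.49, 4.25 and 3.80 in GFP-HRAS rapamycin. In GFP-HRAS DMSO it was 6.61, 6.11 and 6.07, above every injured library. The invariant chain cd74a, which escorts class II molecules, reached 847, 751 and 779 CPM in 7 dpci and 258, 207 and 90.7 CPM in GFP-HRAS rapamycin (log2 fold change 2.1 ± 0.425 SE, edgeR adjusted p = 0.00628). Its paralogue cd74b had 213, 225 and 233 CPM in 7 dpci and 75.6, 56.5 and 23.6 CPM in GFP-HRAS rapamycin (log2 fold change 2.11 ± 0.368 SE, edgeR adjusted p = 0.00297). In both, the lowest injured library held more than the highest HRAS library. The other 3 called were the proteases ctss2.2 (2.05) and ctss2.1 (1.84), which trim the invariant chain, and ciita (1.89), the transactivator of class II genes (adjusted p = 0.00437, 0.0061 and 0.00267; the last 2 named after their values were seen). The class II molecule mhc2dab itself was not called, with 51.0, 39.7 and 19.6 CPM in 7 dpci and 20.2, 22.8 and 1.96 CPM in GFP-HRAS rapamycin (log2 fold change 1.3, adjusted p = 0.403). Set against RFP DMSO, the log2 fold change of cd74a was 3.19 (edgeR adjusted p = 0.000359) in 7 dpci and 1.1 (adjusted p = 0.0626) in GFP-HRAS rapamycin. In GFP-HRAS DMSO cd74a stood at 3604, 2525 and 2306 CPM, higher than in any injured library. The 6 macrophage and leukocyte markers summed to 916 to 983 CPM in 7 dpci and 120.0 to 349.9 CPM in GFP-HRAS rapamycin, and cd74a made up most of each sum. Of the 5 tested, 3 were called higher, and 1 of the MPEG1 genes (ENSDARG00000078569) was at 0 in both groups. Their mean log2 CPM was 4.90, 4.74 and 4.95 in 7 dpci and 4.11, 3.72 and 2.36 in GFP-HRAS rapamycin. In GFP-HRAS DMSO it was 5.96, 5.95 and 5.70.

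Other leukocyte lists were counted too. Of 17 lymphocyte genes 1 was higher and 0 lower; the higher one was il2rb (log2 fold change 1.11, adjusted p = 0.0495, named after its value was seen). il2rb lost its call without GFP-HRAS rapamycin library 1, 2 or 3 or without 7 dpci library 1, 2 or 3, with DESeq2 size factors, with no expression filter or with the replicate block (adjusted p 0.0263 to 0.138 over the alternatives). The immunoglobulin chain ighm had 1.97, 10.7 and 6.02 CPM in 7 dpci and 3.19, 0.868 and 0.672 CPM in GFP-HRAS rapamycin and ZAP70, a kinase of T cells, had 1.01, 2.32 and 2.30 CPM in 7 dpci and 1.70, 1.54 and 0.245 CPM in GFP-HRAS rapamycin. Both overlapped and neither was called (adjusted p = 0.12 and 0.496). In the other direction, prf1.8, named after its value was seen, had 3.02, 1.02 and 1.20 CPM in 7 dpci. In GFP-HRAS rapamycin it had 15.2, 52.1 and 13.1 CPM, and it was not called (log2 fold change -3.91, edgeR adjusted p = 0.0612). prf1.8 passed the threshold, as lower, in DESeq2, when these 6 libraries were fitted on their own or with the replicate block (adjusted p 0.0173 to 0.194 over the alternatives). The neutrophil list had 1 higher and 2 lower of 14, beside 8.36% and 10.2% of all genes tested. lyz, a defining marker, had 0 counts in 7 dpci but was not among the 14 tested, so it does not compare the groups. MMP9 of the list, named after its value was seen, had 20.7, 14.8 and 21.5 CPM in 7 dpci. In GFP-HRAS rapamycin it had 15.9, 25.6 and 21.9 CPM, and it was not called (log2 fold change -0.15, adjusted p = 0.844). The receptor CXCR4 (ENSDARG00000041959) was the 1 higher gene of the list (log2 fold change 2.01, adjusted p = 0.0129). CXCR4 (ENSDARG00000041959) lost its call without GFP-HRAS rapamycin library 2 or without 7 dpci library 3 (adjusted p 0.000587 to 0.0582 over the alternatives). The lower ones, named after their values were seen, were scpp8 (log2 fold change -2.65, adjusted p = 0.0229, lost without GFP-HRAS rapamycin library 2 or without 7 dpci library 1 or 3) and nccrp1 (log2 fold change -1.34, adjusted p = 0.0205, lost without GFP-HRAS rapamycin library 1 or without 7 dpci library 1 or 3).

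Interferon-response genes gave 0 higher and 7 lower of 29 tested, with a median of -0.55. The number lower was 2, 4 and 4 without 7 dpci replicate 1, 2 or 3 in turn, 4 without GFP-HRAS rapamycin replicate 3, 4 when these 6 libraries were fitted on their own and 4 with the replicate block. The antiviral enzyme RSAD2 had 2.40, 1.99 and 0.930 CPM in 7 dpci and 2.39, 5.61 and 52.4 CPM in GFP-HRAS rapamycin. HRAS replicate 3 held most of this signal, and replicate 1 lay within the injured range (log2 fold change -3.49, edgeR adjusted p = 0.0337). RSAD2 lost its call without GFP-HRAS rapamycin library 3 or without 7 dpci library 1, 2 or 3, when these 6 libraries were fitted on their own or with the replicate block (adjusted p 0.00109 to 0.305 over the alternatives). mxe, a member of the Mx family of antiviral GTPases, measured 2.11, 3.34 and 3.34 CPM in 7 dpci and 8.43, 13.8 and 15.5 CPM in GFP-HRAS rapamycin (log2 fold change -2.10 ± 0.506 SE, edgeR adjusted p = 0.0136). Its groups did not overlap. mxe lost its call without 7 dpci library 1 (adjusted p 0.000442 to 0.0633 over the alternatives).

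Among 29 chemokine and cytokine genes 4 were higher and 5 lower, beside 8.36% and 10.2% of all genes tested. For the higher genes the numbers were 1 and 2 without 7 dpci replicate 2 or 3 in turn and 1 without GFP-HRAS rapamycin replicate 2. For the lower genes they were 3 and 2 without 7 dpci replicate 1 or 2 in turn, 3 without GFP-HRAS rapamycin replicate 2 and 3 with the replicate block. Interleukin 11, a cytokine of the IL-6 family with roles in zebrafish heart regeneration, has a pair of genes, both lower in 7 dpci. il11a measured 1.87, 3.02 and 8.92 CPM in 7 dpci and 91.5, 258 and 26.5 CPM in GFP-HRAS rapamycin. The groups did not overlap, and the HRAS libraries themselves ranged widely (log2 fold change -4.77 ± 1.52 SE, edgeR adjusted p = 0.044). il11a lost its call without GFP-HRAS rapamycin library 1 or 2 or without 7 dpci library 1, 2 or 3 or with the replicate block (adjusted p 0.0105 to 0.144 over the alternatives). il11b had 0.575, 0.970 and 2.57 CPM in 7 dpci and 8.48, 31.5 and 1.90 CPM in GFP-HRAS rapamycin, where HRAS replicate 3 lay inside the injured range (log2 fold change -3.35 ± 0.893 SE, edgeR adjusted p = 0.0213). il11b lost its call without GFP-HRAS rapamycin library 2 or without 7 dpci library 1 or 2, when these 6 libraries were fitted on their own or with the replicate block (adjusted p 0.00153 to 0.153 over the alternatives). The chemokine receptor CCR9 (ENSDARG00000055186) was higher in 7 dpci (log2 fold change 1.98, adjusted p = 0.0258). CCR9 lost its call without GFP-HRAS rapamycin library 2 or without 7 dpci library 2 or 3 or when these 6 libraries were fitted on their own (adjusted p 0.00541 to 0.0832 over the alternatives). The other higher genes, named after their values were seen like the next 3, were CXCL12 (log2 fold change 1.6, adjusted p = 0.00251), ccl38.6 (log2 fold change 1.75, adjusted p = 0.0451, lost without GFP-HRAS rapamycin library 1, 2 or 3 or without 7 dpci library 1, 2 or 3, with no expression filter or with the replicate block) and ccl35.1 (log2 fold change 2.34, adjusted p = 0.0144, lost without GFP-HRAS rapamycin library 2 or without 7 dpci library 2), all chemokines. The other lower ones were cxcl8b.1 (log2 fold change -2.41, adjusted p = 0.00902), il6st (log2 fold change -1.08, adjusted p = 0.0133, lost without 7 dpci library 2) and tnfrsf1a (log2 fold change -0.91, adjusted p = 0.00155), a chemokine and 2 cytokine receptors.

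Erythrocyte genes made up 5 of the 15 largest differences. Of 15 tested, 9 were higher and 0 lower (median 1.83), and 10 were higher without GFP-HRAS rapamycin replicate 3. The alpha globin hbaa1 had 332, 509 and 262 CPM in 7 dpci and 43.0, 24.8 and 21.3 CPM in GFP-HRAS rapamycin. The groups were fully apart (log2 fold change 3.63 ± 0.356 SE, edgeR adjusted p = 0.000142). Compared with RFP DMSO hearts, its log2 fold change was 2.37 (edgeR adjusted p = 0.000397) in 7 dpci and -1.26 (adjusted p = 0.0133) in GFP-HRAS rapamycin, so that the groups lay on opposite sides of the RFP hearts. The paralogue hbaa2 measured 22.0, 25.7 and 8.81 CPM in 7 dpci and 1.55, 0.200 and 0.795 CPM in GFP-HRAS rapamycin (log2 fold change 4.42 ± 0.760 SE, edgeR adjusted p = 0.0027). cahz, a carbonic anhydrase of erythrocytes, had 75.8, 103 and 41.5 CPM in 7 dpci and 4.19, 2.54 and 5.38 CPM in GFP-HRAS rapamycin (log2 fold change 4.18 ± 0.426 SE, edgeR adjusted p = 0.000172). Of the genes with the table symbol HBE1, a beta-type globin, 3 were among the 15 largest differences: ENSDARG00000069734 (log2 fold change 4.15), ENSDARG00000097238 (4.11) and ENSDARG00000089087 (3.87), with edgeR adjusted p of 0.000871, 0.00668 and 0.00146. Globin paralogues are near-identical and their counts may be shared out between genes.

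The 20 matched erythrocyte genes summed to 806 to 1265 CPM in 7 dpci and 446 to 487 CPM in GFP-HRAS rapamycin, and the erythrocyte markers hbaa1 and alas2 to 262 to 509 CPM in 7 dpci and 21.3 to 43.1 CPM in GFP-HRAS rapamycin. Erythrocyte RNA thus differed between the groups, and its part in the leukocyte, thrombocyte and coagulation results was not tested. Of 10 thrombocyte genes 5 were higher and 0 lower (median 1.3); the count was 2 and 3 without 7 dpci replicate 1 or 2 in turn and 2 without GFP-HRAS rapamycin replicate 2. Against the RFP DMSO libraries, the median log2 fold change over the list was 0.15 in 7 dpci and -0.95 in GFP-HRAS rapamycin. The integrin itga2b measured 32.6, 34.6 and 28.5 CPM in 7 dpci and 8.23, 10.8 and 14.9 CPM in GFP-HRAS rapamycin (log2 fold change 1.5 ± 0.279 SE, edgeR adjusted p = 0.00393). The adhesion receptor subunit GP1BB had 18.4, 12.2 and 13.4 CPM in 7 dpci and 4.64, 4.54 and 3.55 CPM in GFP-HRAS rapamycin (log2 fold change 1.79 ± 0.339 SE, edgeR adjusted p = 0.00436). Neither overlapped between the groups. The other 3, named after their values were seen, were mpl (log2 fold change 2.16, adjusted p = 0.0213, lost without GFP-HRAS rapamycin library 1 or 2 or without 7 dpci library 1, 2 or 3), the thrombopoietin receptor, gp9 (log2 fold change 1.91, adjusted p = 0.0164, lost without GFP-HRAS rapamycin library 2 or without 7 dpci library 1) and NFE2 (log2 fold change 1.1, adjusted p = 0.0228, lost without GFP-HRAS rapamycin library 1 or 2 or without 7 dpci library 1 or 2).

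Complement and coagulation genes gave 4 higher and 2 lower of 13. The complement component c4b had 506, 556 and 449 CPM in 7 dpci and 114, 49.3 and 75.3 CPM in GFP-HRAS rapamycin (log2 fold change 2.66 ± 0.410 SE, edgeR adjusted p = 0.00155). Coagulation factor F10 had 143, 147 and 151 CPM in 7 dpci and 32.3, 39.8 and 50.7 CPM in GFP-HRAS rapamycin (log2 fold change 1.84 ± 0.286 SE, edgeR adjusted p = 0.00159). Factor XIII A (F13A1 (ENSDARG00000045453)), the enzyme that cross-links fibrin and no member of that list, had 166, 153 and 75.7 CPM in 7 dpci and 7.08, 9.88 and 0.122 CPM in GFP-HRAS rapamycin (log2 fold change 4.53 ± 0.835 SE, edgeR adjusted p = 0.00379) and was among the 15 largest differences. In all 3 genes every injured library exceeded every HRAS library, and in F13A1 HRAS replicate 3 was close to 0. PLAT, tissue plasminogen activator, which dissolves fibrin through plasmin, went the other way with 8.15, 6.52 and 6.40 CPM in 7 dpci and 96.8, 148 and 20.4 CPM in GFP-HRAS rapamycin (log2 fold change -3.65 ± 0.597 SE, edgeR adjusted p = 0.00203). Against the RFP DMSO libraries, the log2 fold change of PLAT was 0.26 (edgeR adjusted p = 0.749) in 7 dpci and 3.91 (adjusted p = 0.00102) in GFP-HRAS rapamycin. The other calls of the list, named after their values were seen, were the higher thbd (log2 fold change 0.80, adjusted p = 0.0251, lost without GFP-HRAS rapamycin library 1 or 2 or without 7 dpci library 1 or 2) and c7a (log2 fold change 1.80, adjusted p = 0.00436), and the lower f3a (log2 fold change -3.99, adjusted p = 0.00731), tissue factor, which starts coagulation. f3a measured 0.623, 0.647 and 0.547 CPM in 7 dpci and 7.03, 21.3 and 0.917 CPM in GFP-HRAS rapamycin. The more abundant paralogue f3b had 63.1, 88.8 and 118 CPM in 7 dpci and 208, 185 and 55.9 CPM in GFP-HRAS rapamycin. It overlapped and was not called (log2 fold change -0.74, edgeR adjusted p = 0.202). f3b passed the threshold, as lower, without GFP-HRAS rapamycin library 3 (adjusted p 0.0141 to 0.533 over the alternatives). vwf, the von Willebrand factor of endothelium and thrombocytes, was higher, with 761, 728 and 798 CPM in 7 dpci and 176, 261 and 354 CPM in GFP-HRAS rapamycin (log2 fold change 1.53 ± 0.240 SE, edgeR adjusted p = 0.00161). It was 0.41 (edgeR adjusted p = 0.188) in 7 dpci and -1.12 (adjusted p = 0.005) in GFP-HRAS rapamycin relative to RFP DMSO.

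**Figure D4:**
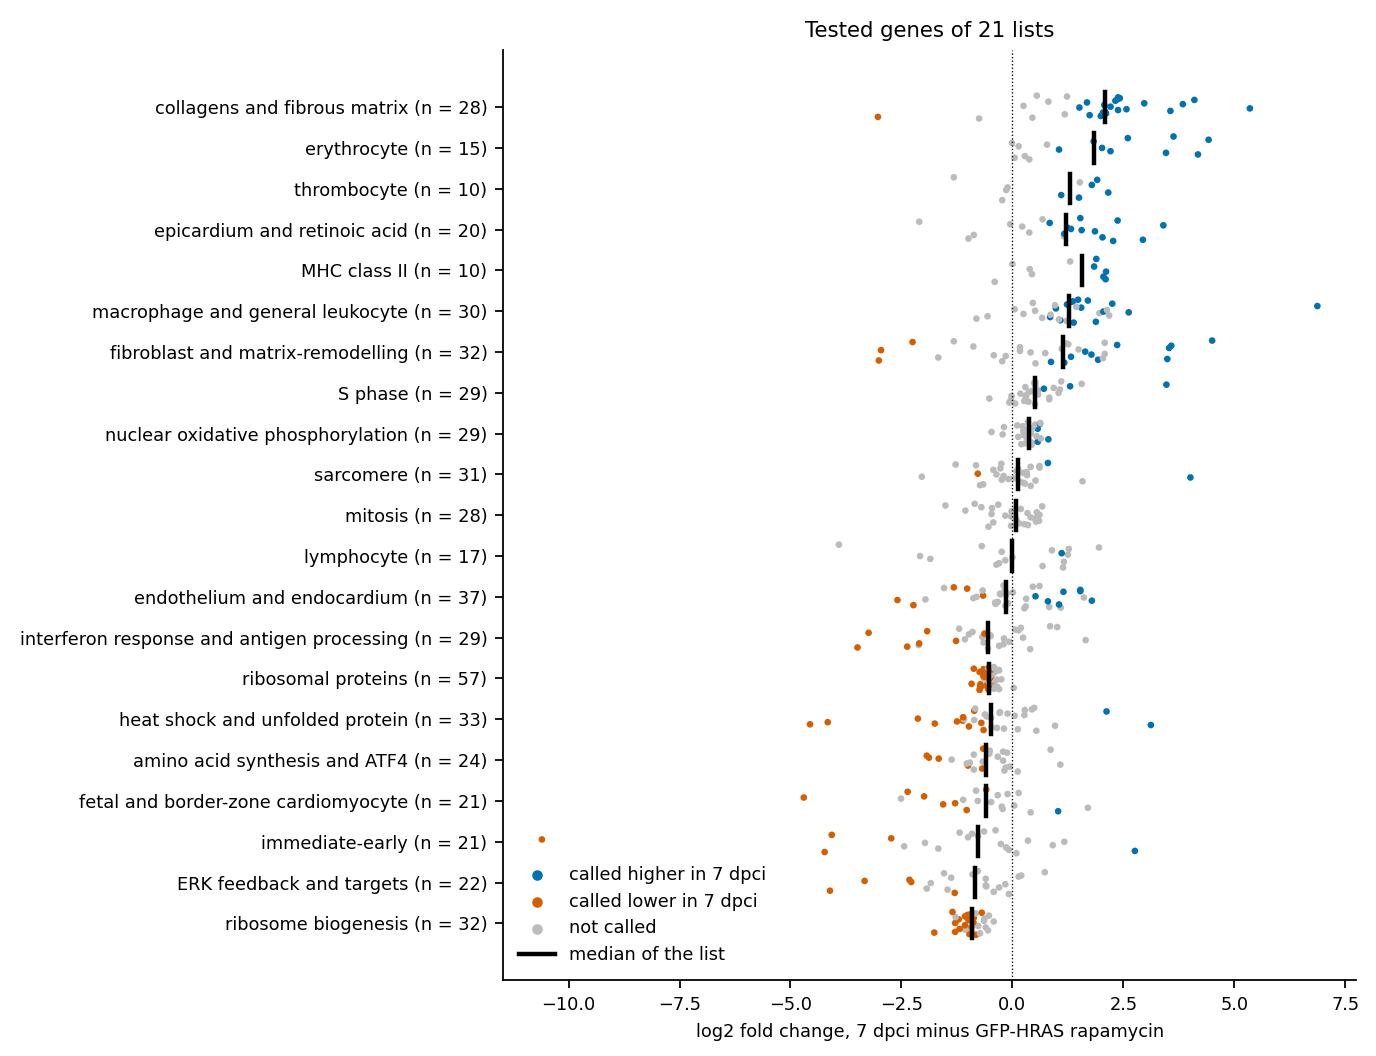
log2 fold change (x axis, 7 dpci minus GFP-HRAS rapamycin) of every tested gene in 21 of the 44 gene lists; points are genes coloured by call, and black bars are list medians. Medians run from 2.08 for collagens and fibrous matrix at the top to -0.92 for ribosome biogenesis at the bottom, and the mitosis list has 0 calls around 0.07. The leftmost point is NPAS4, at 0 counts in 7 dpci, whose plotted value is no bound.

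Natriuretic peptides, hormones that strained cardiomyocytes release, were lower in the injured hearts. nppb measured 93.4, 88.3 and 117 CPM in 7 dpci and 3017, 3961 and 764 CPM in GFP-HRAS rapamycin. The highest injured library was below the lowest HRAS library, replicate 3 (log2 fold change -4.70 ± 0.713 SE, edgeR adjusted p = 0.00154). nppa had 1513, 1146 and 1479 CPM in 7 dpci and 7282, 6133 and 2989 CPM in GFP-HRAS rapamycin, again apart (log2 fold change -1.99 ± 0.309 SE, edgeR adjusted p = 0.00159). nppal, a further gene of the family, had 4.31, 3.07 and 2.63 CPM in 7 dpci and 627, 409 and 31.8 CPM in GFP-HRAS rapamycin (log2 fold change -6.73 ± 1.15 SE, edgeR adjusted p = 0.00263). Relative to RFP DMSO, the log2 fold change of nppa was -1.32 (edgeR adjusted p = 0.00507) in 7 dpci and 0.66 (adjusted p = 0.112) in GFP-HRAS rapamycin. That of nppb was -1.19 (edgeR adjusted p = 0.147) in 7 dpci and 3.50 (adjusted p = 0.00313) in GFP-HRAS rapamycin. For nppal it was 1.85 (edgeR adjusted p = 0.202) in 7 dpci and 8.58 (adjusted p = 0.000847) in GFP-HRAS rapamycin. In the list of fetal and border-zone cardiomyocyte genes, 1 was higher and 7 were lower of 21 (median -0.59), and 9 were lower without replicate 3; the number lower was 4 without 7 dpci replicate 1 or 3 and 4 without GFP-HRAS rapamycin replicate 2. RUNX1, a transcription factor found in border-zone cardiomyocytes of injured hearts, was at 6.81, 7.98 and 7.06 CPM in 7 dpci and 36.1, 60.6 and 15.5 CPM in GFP-HRAS rapamycin (log2 fold change -2.36 ± 0.480 SE, edgeR adjusted p = 0.00635), without overlap. In RFP DMSO it was at 20.4, 30.9 and 23.8 CPM and in GFP-HRAS DMSO at 24.2, 26.8 and 26.1 CPM, also above the injured libraries. The higher gene, named after its value was seen, was VIM (ENSDARG00000010008) (log2 fold change 1.03, adjusted p = 0.0353, lost without GFP-HRAS rapamycin library 1 or 2 or without 7 dpci library 1, 2 or 3, when these 6 libraries were fitted on their own or with the replicate block), an intermediate filament of non-muscle cells.

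Structural genes of the cardiomyocyte gave few calls. Of 31 sarcomere genes 2 were higher and 1 lower (median 0.12). MYL7, the cardiac myosin light chain, had 14885, 16715 and 15096 CPM in 7 dpci and 8473, 8995 and 15080.2 CPM in GFP-HRAS rapamycin. HRAS replicate 3 lay among the injured libraries and the other 2 below them (log2 fold change 0.52, adjusted p = 0.178); without replicate 3 it was called (adjusted p = 0.0339, the lowest of its alternatives, which reached 0.421). The cardiac actin actc1a had 7087, 8307 and 7712 CPM in 7 dpci and 6227, 6109 and 6009 CPM in GFP-HRAS rapamycin and was not called (adjusted p = 0.114), although its groups did not overlap. actc1a passed the threshold in DESeq2 (adjusted p 0.0451 to 0.305 over the alternatives). TNNT2 (ENSDARG00000020610), the troponin of the thin filament, had 5671, 4672 and 4577 CPM in 7 dpci and 5248, 5139.9 and 7282 CPM in GFP-HRAS rapamycin (log2 fold change -0.24, adjusted p = 0.424). TNNI1 (ENSDARG00000052708), a troponin I, was lower (log2 fold change -0.78, adjusted p = 0.0335). TNNI1 lost its call without GFP-HRAS rapamycin library 1 or 2 or without 7 dpci library 1, 2 or 3 or with the replicate block (adjusted p 0.00988 to 0.0972 over the alternatives). MYOM1 (ENSDARG00000104836), a protein of the M-band, was higher (log2 fold change 0.80 ± 0.186 SE, edgeR adjusted p = 0.0117). MYOM1 (ENSDARG00000104836) lost its call without GFP-HRAS rapamycin library 2 (adjusted p 0.000683 to 0.0578 over the alternatives). The remaining call, tpma, a tropomyosin named after its values were seen, was at 1.29, 0.916 and 0.875 CPM in 7 dpci and 0.0998, 0.0667 and 0 CPM in GFP-HRAS rapamycin (adjusted p = 0.0158). tpma lost its call without GFP-HRAS rapamycin library 2 or without 7 dpci library 1 (adjusted p 0.00547 to 0.0578 over the alternatives).

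Cardiac channels and transcription factors were mixed. The potassium channels kcnh6a, which repolarises the zebrafish cardiomyocyte, and kcnq1.1 were lower, with 184, 192 and 224 CPM in 7 dpci and 478, 637 and 1067 CPM in GFP-HRAS rapamycin for kcnh6a (log2 fold change -1.86 ± 0.385 SE, edgeR adjusted p = 0.00677). The log2 fold change was -1.17 for kcnq1.1 (adjusted p = 0.00799). The pump gene ATP2A2 (ENSDARG00000005122) was the remaining lower call of 15 calcium and channel genes (log2 fold change -0.93 ± 0.238 SE, edgeR adjusted p = 0.018). ATP2A2 lost its call without GFP-HRAS rapamycin library 2 or without 7 dpci library 1, 2 or 3 or with library totals in place of TMM scaling (adjusted p 0.00314 to 0.0792 over the alternatives). Its far more abundant paralogue atp2a2a went the other way, with 5256, 4702 and 5359 CPM in 7 dpci and 3335, 3662 and 4306 CPM in GFP-HRAS rapamycin. It did not overlap and was not called (log2 fold change 0.44, edgeR adjusted p = 0.0801). atp2a2a passed the threshold with library totals, in DESeq2 or without GFP-HRAS rapamycin library 3 (adjusted p 0.0302 to 0.208 over the alternatives). The transcription factor TBX5 (ENSDARG00000024894) had 148, 162 and 147 CPM in 7 dpci and 267, 285 and 673 CPM in GFP-HRAS rapamycin (log2 fold change -1.42 ± 0.302 SE, edgeR adjusted p = 0.00778). HAND2 had 175, 187 and 169 CPM in 7 dpci and 329.6, 298 and 310.2 CPM in GFP-HRAS rapamycin (log2 fold change -0.82 ± 0.151 SE, edgeR adjusted p = 0.00379). Both are regulators of heart development and both were lower with no overlap. The TBX5 paralogue tbx5b had 51.0, 58.2 and 64.9 CPM in 7 dpci and 15.1, 20.6 and 66.0 CPM in GFP-HRAS rapamycin. It overlapped and was not called (log2 fold change 0.78, edgeR adjusted p = 0.221). tbx5b passed the threshold, as higher in 7 dpci, without GFP-HRAS rapamycin library 3 (adjusted p 0.0024 to 0.509 over the alternatives). Set against RFP DMSO, the log2 fold change of TBX5 was -1.90 (edgeR adjusted p = 0.000742) in 7 dpci and -0.48 (adjusted p = 0.238) in GFP-HRAS rapamycin. For HAND2 it was -0.17 (edgeR adjusted p = 0.4) in 7 dpci and 0.65 (adjusted p = 0.00773) in GFP-HRAS rapamycin. The pacemaker channel gene HCN4 (ENSDARG00000061685) had 9.20, 7.44 and 12 CPM in 7 dpci and 7.38, 9.68 and 43.0 CPM in GFP-HRAS rapamycin and was not called (adjusted p = 0.244). Of 21 cardiac transcription factor genes 2 were higher and 3 lower, beside 8.36% and 10.2% of all genes tested. The others, named after their values were seen, were the higher TBX20 (log2 fold change 0.64, adjusted p = 0.0246, lost without GFP-HRAS rapamycin library 1 or 2 or without 7 dpci library 1, 2 or 3 or when these 6 libraries were fitted on their own) and the lower MEF2C (ENSDARG00000009418) (log2 fold change -0.69, adjusted p = 0.0461, lost without GFP-HRAS rapamycin library 2 or 3 or without 7 dpci library 1, 2 or 3, with library totals in place of TMM scaling, with no expression filter, when these 6 libraries were fitted on their own or with the replicate block). ppargc1b, a coactivator of mitochondrial genes, was higher (log2 fold change 1.1, adjusted p = 0.0192). ppargc1b lost its call without GFP-HRAS rapamycin library 1 or 2 or without 7 dpci library 1 or 2 or when these 6 libraries were fitted on their own (adjusted p 0.000861 to 0.0868 over the alternatives).

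Of 22 tested genes in the list of ERK feedback and targets, 5 were lower in 7 dpci, 0 were higher and 17 were not called, with a median of -0.84. The list also holds both HRAS genes, kras and NRAS, which act upstream of ERK and were not called. The number lower was 2 without 7 dpci replicate 1 or 2, 3 and 10 without GFP-HRAS rapamycin replicate 1 or 3 in turn, 10 in DESeq2 and 3 with the replicate block. HRAS (ENSDARG00000098497) was among the 10 in both cases. The mean log2 CPM of the list was 2.25, 2.57 and 2.84 in 7 dpci, against 3.90, 3.78 and 3.14 in GFP-HRAS rapamycin and 2.49, 2.37 and 2.36 in RFP DMSO.

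FOSL1, an AP-1 subunit stabilised by ERK, measured 3.40, 6.14 and 31.2 CPM in 7 dpci and 159, 460.0 and 85.9 CPM in GFP-HRAS rapamycin. The highest injured library, replicate 3, stayed below the lowest HRAS library (log2 fold change -4.11 ± 1.12 SE, edgeR adjusted p = 0.0233). FOSL1 lost its call without GFP-HRAS rapamycin library 2 or without 7 dpci library 1 or 2 or with the replicate block (adjusted p 0.00161 to 0.0905 over the alternatives). HMGA2, a chromatin protein of embryonic and tumour cells, had 1.58, 1.78 and 1.59 CPM in 7 dpci and 27.3, 15.1 and 7.58 CPM in GFP-HRAS rapamycin (log2 fold change -3.33 ± 0.471 SE, edgeR adjusted p = 0.00107), with groups apart and a call in every alternative that gave a value. The ERK phosphatase DUSP6 had 0.911, 3.23 and 1.91 CPM in 7 dpci and 16.2, 8.34 and 5.50 CPM in GFP-HRAS rapamycin (log2 fold change -2.32 ± 0.745 SE, edgeR adjusted p = 0.0453). DUSP6 lost its call without GFP-HRAS rapamycin library 1 or 2 or without 7 dpci library 1, 2 or 3, with library totals in place of TMM scaling or with the replicate block (adjusted p 0.00666 to 0.153 over the alternatives). Compared with RFP DMSO hearts, the log2 fold change of DUSP6 was -2.38 (edgeR adjusted p = 0.0242) in 7 dpci and -0.07 (adjusted p = 0.954) in GFP-HRAS rapamycin. That of FOSL1 was 0.83 (edgeR adjusted p = 0.554) in 7 dpci and 4.94 (adjusted p = 0.00879) in GFP-HRAS rapamycin. The other 2 calls, named after their values were seen, were etv5a (-2.28, adjusted p = 0.0248) and SPRED2 (-1.30, adjusted p = 0.0011). etv5a lost its call without GFP-HRAS rapamycin library 1 or without 7 dpci library 1, 2 or 3 (adjusted p 0.0132 to 0.126 over the alternatives). Its level was 0.144, 0.162 and 0.274 CPM in 7 dpci and 1.70, 0.400 and 0.734 CPM in GFP-HRAS rapamycin. SPRY4 and ETV4, further feedback and target genes, were not called (adjusted p = 0.0806 and 0.0798). Their log2 fold changes were -1.84 and -1.46, and without GFP-HRAS rapamycin replicate 3 ETV4 passed (adjusted p = 0.00244, the lowest over its alternatives, which reached 0.255). SPRY4 passed the threshold without GFP-HRAS rapamycin library 3 or in DESeq2 (adjusted p 0.0272 to 0.229 over the alternatives).

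Immediate-early genes, which stimuli induce without new protein synthesis, gave 4 lower and 1 higher of 21 (median -0.77), and the number lower was 1 and 2 without 7 dpci replicate 1 or 2 in turn, 2 without GFP-HRAS rapamycin replicate 2, 2 when these 6 libraries were fitted on their own and 2 with the replicate block. KLF4 had 1.68, 1.19 and 3.72 CPM in 7 dpci and 23.9, 51.1 and 35.8 CPM in GFP-HRAS rapamycin (log2 fold change -4.07 ± 0.592 SE, edgeR adjusted p = 0.00119). No HRAS library was under 23.9 CPM and no injured one above 3.72. ATF3, a stress-induced factor, had 7.10, 14 and 26.5 CPM in 7 dpci and 368, 499 and 29.8 CPM in GFP-HRAS rapamycin, where HRAS replicate 3 at 29.8 was only just above injured replicate 3 (log2 fold change -4.23 ± 0.972 SE, edgeR adjusted p = 0.011). ATF3 lost its call without 7 dpci library 1 (adjusted p 5.41e-06 to 0.0523 over the alternatives). NPAS4 (ENSDARG00000055752), known from activity-dependent transcription in neurons, had 0 counts in all 3 injured libraries and 21.0, 9.88 and 0.428 CPM in the GFP-HRAS rapamycin libraries. Against a floor of 3 counts over the group it was at least 216-fold lower (edgeR adjusted p = 0.0223). That ratio is of whole groups and rested on HRAS replicates 1 and 2, while replicate 3 stood at only 0.428 CPM. NPAS4 lost its call without GFP-HRAS rapamycin library 2 or without 7 dpci library 1, 2 or 3 or with the replicate block (adjusted p 0.000404 to 0.0652 over the alternatives). The remaining calls, named after their values were seen, were NR4A3 (-2.73, adjusted p = 0.0433) and, higher in 7 dpci, NR4A2 (ENSDARG00000017007) (2.76, adjusted p = 0.043), both orphan nuclear receptors. NR4A3 lost its call without GFP-HRAS rapamycin library 1 or 2 or without 7 dpci library 1 or 2, when these 6 libraries were fitted on their own or with the replicate block (adjusted p 0.00413 to 0.154 over the alternatives). NR4A2 (ENSDARG00000017007) lost its call without GFP-HRAS rapamycin library 1 or 2 or without 7 dpci library 1, 2 or 3 (adjusted p 0.00868 to 0.152 over the alternatives).

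Of 33 heat shock and unfolded protein genes, 11 were lower in the injured hearts, 2 were higher and 20 were not called (median -0.48). Mean log2 CPM of the list overlapped, with 5.24, 5.4 and 5.33 in 7 dpci and 5.95, 6.07 and 5.24 in GFP-HRAS rapamycin, where replicate 3 was level with the injured libraries. Without replicate 3, 12 were lower; the 2 higher are both SERPINH1 genes, the collagen chaperone given with the matrix. hsp70.3, an inducible chaperone, had 1.39, 1.72 and 2.57 CPM in 7 dpci and 49.9, 79.6 and 4.28 CPM in GFP-HRAS rapamycin (log2 fold change -4.56 ± 0.836 SE, edgeR adjusted p = 0.00371). hsp70.1 had 0.671, 0.647 and 1.70 CPM in 7 dpci and 17.0, 34.2 and 2.63 CPM in GFP-HRAS rapamycin (log2 fold change -4.16 ± 0.741 SE, edgeR adjusted p = 0.00326). A further chaperone of the family but outside that list, HSPA2, had 2.06, 2.48 and 3.61 CPM in 7 dpci and 58.5, 136 and 9.35 CPM in GFP-HRAS rapamycin (log2 fold change -4.65 ± 0.747 SE, edgeR adjusted p = 0.00182). The small heat shock gene hspb9, also outside it, had 1.87, 1.02 and 1.59 CPM in 7 dpci and 43.4, 182 and 2.75 CPM in GFP-HRAS rapamycin (log2 fold change -5.66 ± 1.04 SE, edgeR adjusted p = 0.00374). In each of these 4 genes all HRAS libraries lay above all injured ones, and HRAS replicate 2 was highest and replicate 3 lowest.

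Of 24 genes of amino acid synthesis and of ATF4, the factor that answers amino acid shortage and unfolded proteins, 6 were lower, 0 higher and 18 not called (median -0.59). The number lower was 2, 2 and 3 without 7 dpci replicate 1, 2 or 3 in turn, 2 without GFP-HRAS rapamycin replicate 2 and 3 with library totals in place of TMM scaling. The lower genes included atf4a itself, named after its value was seen (log2 fold change -0.66, edgeR adjusted p = 0.0361). atf4a lost its call without GFP-HRAS rapamycin library 1 or 2 or without 7 dpci library 1, 2 or 3, with library totals, with no expression filter, when these 6 libraries were fitted on their own or with the replicate block (adjusted p 0.00384 to 0.148 over the alternatives). sesn2, a leucine sensor upstream of TOR, had 4.79, 3.61 and 3.45 CPM in 7 dpci and 13, 16.9 and 15.4 CPM in GFP-HRAS rapamycin (log2 fold change -1.93 ± 0.265 SE, edgeR adjusted p = 0.000922). DDIT3 (CHOP), a factor of the stress response, had 32.0, 32.9 and 44.2 CPM in 7 dpci and 117, 109 and 120.2 CPM in GFP-HRAS rapamycin (log2 fold change -1.66 ± 0.328 SE, edgeR adjusted p = 0.00535). Neither overlapped, and the spread within each group was small. The amino acid transporter SLC7A3 (ENSDARG00000061566) was lower (log2 fold change -1.88, adjusted p = 0.0146). SLC7A3 (ENSDARG00000061566) lost its call without GFP-HRAS rapamycin library 2 or without 7 dpci library 1 or 2 (adjusted p 0.000715 to 0.0599 over the alternatives). Of the p53 targets and cell cycle inhibitors 1 of 22 was lower: BAX, which opens the mitochondrial membrane in cell death, with 19.7, 19.9 and 23.1 CPM in 7 dpci and 60.3, 67.3 and 46.5 CPM in GFP-HRAS rapamycin (log2 fold change -1.47 ± 0.233 SE, edgeR adjusted p = 0.00163). The inhibitor cdkn1a was not called between the groups (log2 fold change -0.46, adjusted p = 0.14), and relative to RFP DMSO it was 1.75 (edgeR adjusted p = 0.000229) in 7 dpci and 2.21 (adjusted p = 9.11e-05) in GFP-HRAS rapamycin.

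Most of the ribosome genes tested were lower in the injured hearts. Of 32 genes of ribosome biogenesis, 18 were lower and 0 higher (median -0.92), and of 57 ribosomal protein and elongation factor genes 31 were lower and 0 higher (median -0.52). Without replicate 3 of GFP-HRAS rapamycin the counts were 13 and 22. These counts depended on scaling and on the other libraries. For biogenesis they were 5, 6 and 5 without 7 dpci replicate 1, 2 or 3 in turn, 3 without GFP-HRAS rapamycin replicate 2 and 8 with library totals in place of TMM scaling. For ribosomal proteins they were 9, 11 and 9 without 7 dpci replicate 1, 2 or 3 in turn, 14 and 10 without GFP-HRAS rapamycin replicate 1 or 2 in turn, 9 with library totals in place of TMM scaling and 14 with no expression filter. Mean log2 CPM of the biogenesis list was 3.96, 3.90 and 3.90 in 7 dpci, against 4.45, 5.10 and 4.88 in GFP-HRAS rapamycin, 4.98, 4.89 and 5.03 in GFP-HRAS DMSO and 5.07, 5.30 and 5.07 in RFP DMSO. All of the GFP-HRAS DMSO libraries lay above the injured ones on this list and within the range of the rapamycin ones. For the ribosomal proteins it was 8.21, 8.22 and 8.21 in 7 dpci, against 8.76, 8.70 and 8.72 in GFP-HRAS rapamycin, 8.24, 8.11 and 7.91 in GFP-HRAS DMSO and 8.71, 8.93 and 8.90 in RFP DMSO. On the ribosomal protein list, unlike the biogenesis list, the GFP-HRAS DMSO libraries sat near the injured libraries and the rapamycin ones near RFP DMSO.

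RRS1, an assembly factor of the large ribosomal subunit, had 11.4, 12 and 11.9 CPM in 7 dpci and 30.4, 52.7 and 36.5 CPM in GFP-HRAS rapamycin (log2 fold change -1.76 ± 0.253 SE, edgeR adjusted p = 0.00115). The 3 injured values were almost equal and all under the lowest HRAS value. NOP58, a core protein of small nucleolar particles, had 26.8, 25.4 and 24.0 CPM in 7 dpci and 48.0, 79.2 and 67.1 CPM in GFP-HRAS rapamycin (log2 fold change -1.35 ± 0.302 SE, edgeR adjusted p = 0.00966). It was -1.56 (edgeR adjusted p = 0.00203) in 7 dpci and -0.21 (adjusted p = 0.62) in GFP-HRAS rapamycin relative to RFP DMSO. GNL3 (nucleostemin) was lower (log2 fold change -1.29, adjusted p = 0.0128). GNL3 lost its call without GFP-HRAS rapamycin library 2 or without 7 dpci library 3 (adjusted p 0.000862 to 0.0573 over the alternatives). The elongation factor eef1a1l1 had 8372, 7528 and 8869 CPM in 7 dpci and 14228, 15514 and 17137 CPM in GFP-HRAS rapamycin (log2 fold change -0.92 ± 0.153 SE, edgeR adjusted p = 0.00229), eef2b had 3192, 3283 and 3147 CPM in 7 dpci and 6646, 5939.7 and 4965 CPM in GFP-HRAS rapamycin (log2 fold change -0.87 ± 0.192 SE, edgeR adjusted p = 0.00927). The ribosomal protein RPL3 had 1589, 1674 and 1585 CPM in 7 dpci and 2699, 2731 and 2683 CPM in GFP-HRAS rapamycin (log2 fold change -0.74 ± 0.154 SE, edgeR adjusted p = 0.00689). No library of these 3 genes crossed into the other group. Of 31 TOR components and effectors 1 was higher and 3 lower (median 0.0). The higher one, DEPTOR, which binds and inhibits TOR, had 16.7, 15.6 and 15.3 CPM in 7 dpci and 8.63, 5.47 and 6.05 CPM in GFP-HRAS rapamycin (log2 fold change 1.23 ± 0.256 SE, edgeR adjusted p = 0.00682). It was -0.32 (edgeR adjusted p = 0.334) in 7 dpci and -1.55 (adjusted p = 0.00145) in GFP-HRAS rapamycin relative to RFP DMSO. The adaptor GRB10 (ENSDARG00000035308) was lower (log2 fold change -0.99, adjusted p = 0.0324). GRB10 (ENSDARG00000035308) lost its call without GFP-HRAS rapamycin library 2 or without 7 dpci library 1, 2 or 3, with library totals in place of TMM scaling, when these 6 libraries were fitted on their own or with the replicate block (adjusted p 0.0122 to 0.17 over the alternatives). RPS6, a ribosomal protein and TOR effector named after its value was seen, was also lower (-0.57, adjusted p = 0.0183). RPS6 lost its call without GFP-HRAS rapamycin library 2 or without 7 dpci library 1, 2 or 3 or with library totals in place of TMM scaling (adjusted p 0.000433 to 0.0922 over the alternatives).

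**Figure D5:**
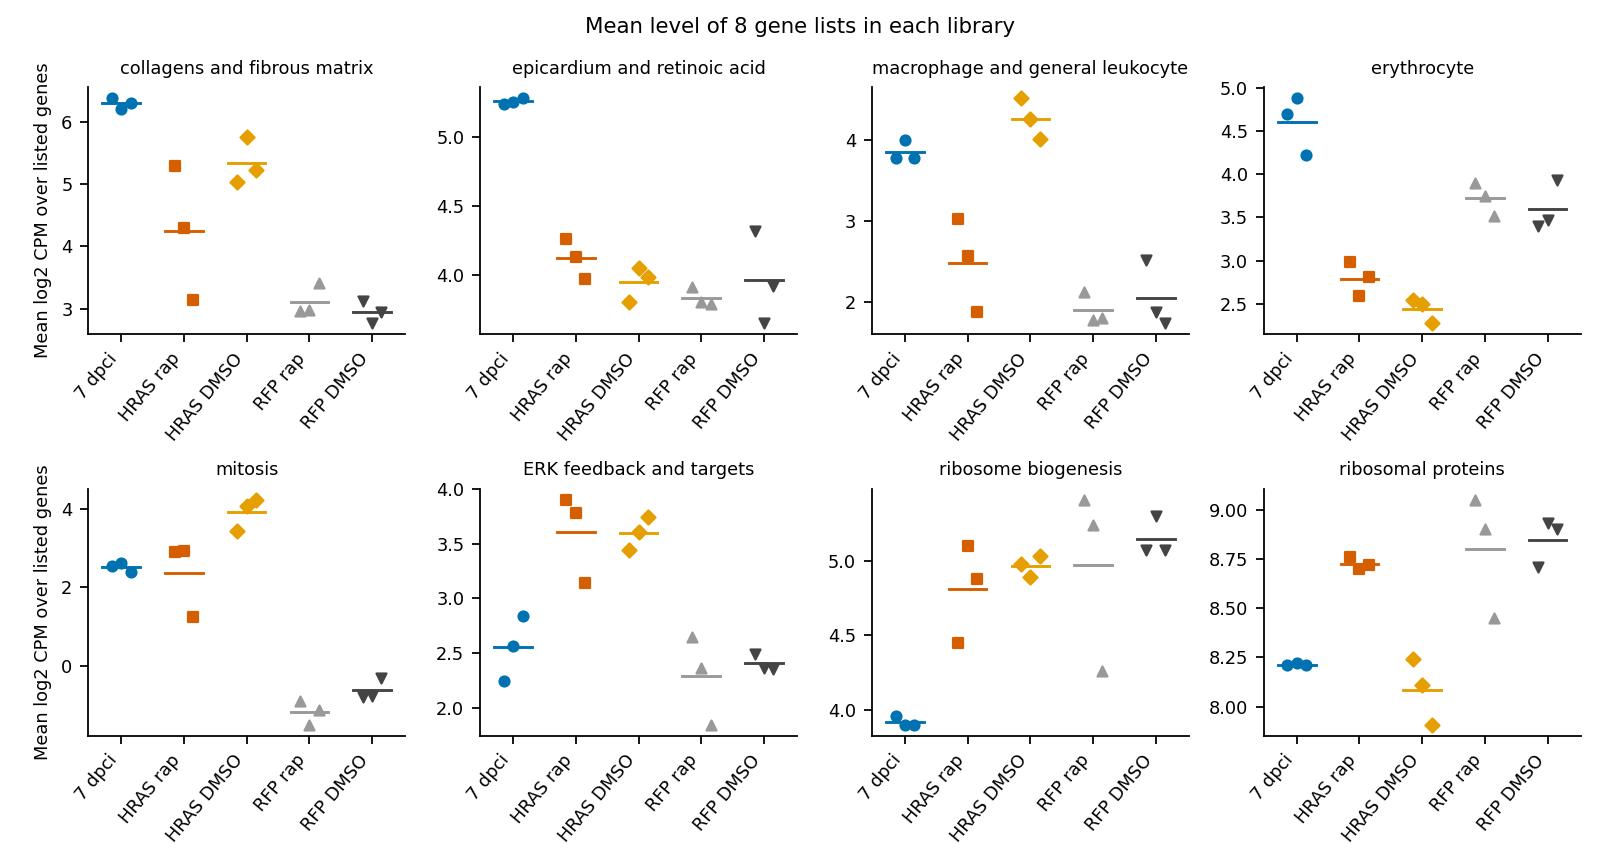
Mean log2 CPM over the tested genes of 8 lists (y axes) in every library of 5 groups; horizontal lines are group means. The collagen, epicardium, macrophage and erythrocyte lists are higher in every 7 dpci library than in every GFP-HRAS rapamycin library, both ribosome lists are lower, and mitosis runs from 2.39 to 2.63 in 7 dpci and 1.25 to 2.93 in GFP-HRAS rapamycin.

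Mitosis genes gave 0 calls between the groups. Of 28 mitosis genes edgeR called 0 higher and 0 lower, with a median of 0.07; at an unadjusted p under 0.05 the counts were 0 and 2, and DESeq2 called 0 and 1. The mean log2 CPM of the list was 2.55, 2.63 and 2.39 in 7 dpci, against 2.90, 2.93 and 1.25 in GFP-HRAS rapamycin and -0.78, -0.76 and -0.31 in RFP DMSO. Replicate 3 was thus lower than the other HRAS libraries, and without it 3 genes were lower in 7 dpci and the median was -0.32. Against the RFP DMSO libraries, the median over the list was 3.26 in 7 dpci and 3.32 in GFP-HRAS rapamycin. mki67, the standard proliferation marker, had 32.3, 33.8 and 27.8 CPM in 7 dpci and 24.7, 25.3 and 8.99 CPM in GFP-HRAS rapamycin and was not called (log2 fold change 0.67, adjusted p = 0.22), although the groups did not overlap. It was 3.95 (edgeR adjusted p = 0.000127) in 7 dpci and 3.28 (adjusted p = 0.000382) in GFP-HRAS rapamycin relative to RFP DMSO. CDK1, the kinase of entry into mitosis, had 0.240, 0.539 and 0.164 CPM in 7 dpci and 0.748, 0.534 and 0.245 CPM in GFP-HRAS rapamycin (log2 fold change -0.70, adjusted p = 0.476).

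Genes of DNA replication (S phase) gave 3 higher and 0 lower of 29, with a median of 0.51; the count was 1 without 7 dpci replicate 1, 2 or 3, 1 without GFP-HRAS rapamycin replicate 2 or 3 and 1 with no expression filter. PCNA, the sliding clamp of DNA polymerase, had 115, 114 and 95.7 CPM in 7 dpci and 76.0, 78.7 and 43.7 CPM in GFP-HRAS rapamycin (log2 fold change 0.71 ± 0.226 SE, edgeR adjusted p = 0.0436). PCNA lost its call without GFP-HRAS rapamycin library 2 or 3 or without 7 dpci library 1, 2 or 3, with library totals in place of TMM scaling, with no expression filter or when these 6 libraries were fitted on their own (adjusted p 0.0267 to 0.124 over the alternatives). The other 2, named after their values were seen, were LIG1, a DNA ligase (log2 fold change 1.3, adjusted p = 0.0398), and RRM2 (ENSDARG00000078069), a subunit of ribonucleotide reductase (3.47, adjusted p = 0.0027). The RRM2 gene measured 10.9, 7.49 and 4.10 CPM in 7 dpci and 0.798, 0.400 and 0.795 CPM in GFP-HRAS rapamycin. Its call was kept in every alternative that gave a value. LIG1 lost its call without GFP-HRAS rapamycin library 1, 2 or 3 or without 7 dpci library 1, 2 or 3, with no expression filter or with the replicate block (adjusted p 0.0171 to 0.126 over the alternatives).

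Signalling genes held some of the clearest differences. The table symbol IHH belongs to a hedgehog ligand gene (ENSDARG00000037062). No gene with the symbol ihha or ihhb passed the filter, and how these zebrafish names relate to the human-style IHH is not settled here. IHH measured 3.45, 5.87 and 4.16 CPM in 7 dpci and 105, 167 and 217 CPM in GFP-HRAS rapamycin. The lowest HRAS library was far above the highest injured one, and replicate 3 was here the highest HRAS library (log2 fold change -5.18 ± 0.452 SE, edgeR adjusted p = 8.15e-05). In GFP-HRAS DMSO it was at 21.7, 6.84 and 11.0 CPM, and in RFP DMSO at 1.57, 1.41 and 0.717. notum1b, an enzyme that inactivates Wnt ligands, had 10.1, 7.92 and 9.63 CPM in 7 dpci and 108, 134 and 114 CPM in GFP-HRAS rapamycin (log2 fold change -3.69 ± 0.255 SE, edgeR adjusted p = 1.49e-05). Its values were tight in both groups. Relative to RFP DMSO, the log2 fold change of IHH was 1.87 (edgeR adjusted p = 0.00632) in 7 dpci and 7.05 (adjusted p = 1.44e-05) in GFP-HRAS rapamycin. That of notum1b was -4.04 (edgeR adjusted p = 4.45e-06) in 7 dpci and -0.35 (adjusted p = 0.262) in GFP-HRAS rapamycin, so that for notum1b the injured hearts and for IHH the HRAS hearts lay farther from RFP DMSO.

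Of 25 hedgehog and Wnt genes 6 were higher and 3 lower (median 0.34), and 7 were lower without replicate 3. The secreted Wnt inhibitor SFRP1 (ENSDARG00000035521) was higher, with 15.8, 14.4 and 13.8 CPM in 7 dpci and 3.24, 1.47 and 2.38 CPM in GFP-HRAS rapamycin (log2 fold change 2.62 ± 0.408 SE, edgeR adjusted p = 0.0016), and DKK3 (ENSDARG00000070683), of the Dickkopf family, also (log2 fold change 1.75 ± 0.487 SE, edgeR adjusted p = 0.0254). DKK3 (ENSDARG00000070683) lost its call without GFP-HRAS rapamycin library 2 or without 7 dpci library 1 or 3 or when these 6 libraries were fitted on their own (adjusted p 0.000995 to 0.102 over the alternatives). Named after their values were seen, the hedgehog effectors GLI2 (ENSDARG00000020884) (2.45), GLI1 (1.73) and GLI3 (1.43) were higher, with adjusted p of 0.00163, 0.0286 and 0.00218. GLI1 lost its call without GFP-HRAS rapamycin library 2 or without 7 dpci library 1, 2 or 3 or when these 6 libraries were fitted on their own (adjusted p 0.00448 to 0.0903 over the alternatives). The hedgehog receptor PTCH1 (0.37, adjusted p = 0.618), which is also a hedgehog target, was not called. The ligand WNT9B had 0, 0.108 and 0.109 CPM in 7 dpci and 5.99, 15.1 and 4.58 CPM in GFP-HRAS rapamycin, and WNT10A 0, 0 and 0.109 CPM in 7 dpci and 3.84, 1.0 and 1.65 CPM in GFP-HRAS rapamycin. Both were lower (adjusted p = 0.000629 and 0.00163). A further ligand, WNT5B, named after its value was seen, was the remaining higher call of the list. It had 11.8, 12.9 and 9.30 CPM in 7 dpci and 4.94, 3.54 and 3.67 CPM in GFP-HRAS rapamycin (log2 fold change 1.48 ± 0.246 SE, edgeR adjusted p = 0.0023). Its call was kept in every alternative that gave a value.

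Among 30 growth factor genes tied to heart regeneration, 5 were higher and 9 lower. Midkine (MDK (ENSDARG00000036036)), a heparin-binding growth factor, stood at 798, 777 and 786 CPM in 7 dpci and 223, 162 and 45.1 CPM in GFP-HRAS rapamycin. The injured libraries were nearly equal, and the HRAS libraries ranged down to replicate 3 (log2 fold change 2.45 ± 0.582 SE, edgeR adjusted p = 0.0127). Set against RFP DMSO, its log2 fold change was 4.47 (edgeR adjusted p = 0.000403) in 7 dpci and 2.02 (adjusted p = 0.0203) in GFP-HRAS rapamycin. The neuregulin receptor ERBB4 (ENSDARG00000089536) was lower, with 3.26, 2.21 and 3.77 CPM in 7 dpci and 14.8, 12.2 and 8.01 CPM in GFP-HRAS rapamycin (log2 fold change -1.92 ± 0.316 SE, edgeR adjusted p = 0.00211), and NRG1, a ligand of that receptor named after its value was seen, also (log2 fold change -2.22, adjusted p = 0.00832). igfbp6b, which binds insulin-like growth factors, was lower (log2 fold change -1.69, adjusted p = 0.0252). igfbp6b lost its call without GFP-HRAS rapamycin library 2 or without 7 dpci library 1, 2 or 3 (adjusted p 0.00374 to 0.0954 over the alternatives). Its log2 fold change relative to RFP DMSO was 3.24 (edgeR adjusted p = 0.000604) in 7 dpci and 4.92 (adjusted p = 0.000177) in GFP-HRAS rapamycin. igfbp1b, of the same family, had 8.34, 4.96 and 8.26 CPM in 7 dpci and 1.25, 6.61 and 48.4 CPM in GFP-HRAS rapamycin (log2 fold change -1.38, adjusted p = 0.412). The number higher was 3 without 7 dpci replicate 1 or 2 and 8 in DESeq2. The number lower was 4 and 5 without 7 dpci replicate 2 or 3 in turn and 5 without GFP-HRAS rapamycin replicate 2. Other higher genes, named after their values were seen, included FGFR1 (ENSDARG00000011027) (log2 fold change 1.28, adjusted p = 0.0222, lost without GFP-HRAS rapamycin library 3 or without 7 dpci library 1 or 2), HBEGF (log2 fold change 1.56, adjusted p = 0.0248, lost without GFP-HRAS rapamycin library 2 or without 7 dpci library 1, 2 or 3 or when these 6 libraries were fitted on their own), both parts of growth factor signalling, and CXCL12 (log2 fold change 1.6, adjusted p = 0.00251), a chemokine. Of 24 TGF-beta and activin genes, the ligand TGFB3 was the 1 called, with 130.3, 99.7 and 121 CPM in 7 dpci and 239, 267 and 166 CPM in GFP-HRAS rapamycin (log2 fold change -0.94 ± 0.189 SE, edgeR adjusted p = 0.00609). The next genes were named after their values were seen. Both INHBB genes (-2.5 and -1.7) and FSTL1 (ENSDARG00000015559) (-2.26) passed as lower without GFP-HRAS rapamycin library 3 and in DESeq2. SMAD3 (ENSDARG00000010207) passed as higher in DESeq2 and with the stricter filter. TGFBR1 (ENSDARG00000017494) passed as higher with the stricter filter or library totals, and TGFBR2 (ENSDARG00000059363) when these 6 libraries were fitted on their own.

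Energy metabolism showed small differences. Nuclear genes of oxidative phosphorylation gave 4 higher and 0 lower of 29 (median 0.37), and the number higher was 1 without 7 dpci replicate 1, 2 or 3, 1, 0 and 11 without GFP-HRAS rapamycin replicate 1, 2 or 3 in turn, 13 with library totals in place of TMM scaling, 1 with no expression filter and 8 when these 6 libraries were fitted on their own. NDUFS3, a subunit of respiratory complex I, had 119, 125 and 115 CPM in 7 dpci and 54.6, 63.4 and 86.8 CPM in GFP-HRAS rapamycin (log2 fold change 0.81 ± 0.186 SE, edgeR adjusted p = 0.0112). NDUFS3 lost its call without GFP-HRAS rapamycin library 2 (adjusted p 0.000824 to 0.0514 over the alternatives). NDUFA4 and NDUFA9, further respiratory chain subunits, followed at 0.62 and 0.57 (edgeR adjusted p = 0.0418 and 0.0345). Both lost their call without GFP-HRAS rapamycin library 1 or 2 or without 7 dpci library 1, 2 or 3 or with no expression filter (adjusted p up to 0.126 and 0.116, down to 0.00789 and 0.0101). The fourth, named after its value was seen, was ATP5F1A (log2 fold change 0.57, adjusted p = 0.0463, lost without GFP-HRAS rapamycin library 1 or 2 or without 7 dpci library 1, 2 or 3, with no expression filter or with the replicate block), a subunit of ATP synthase. edgeR called 0 higher and 0 lower of 37 genes of fatty acid oxidation and the TCA cycle (1 higher and 0 lower at an unadjusted p under 0.05, 0 and 0 in DESeq2), and likewise 0 and 0 of 13 mitochondrially encoded genes (0 and 0 unadjusted, 0 and 0 in DESeq2).

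Glycolysis genes split, with 3 higher and 4 lower of 30 (median -0.26) and 8 lower without replicate 3. PFKFB3, which makes the activator of phosphofructokinase, had 9.20, 6.63 and 9.30 CPM in 7 dpci and 90.7, 88.5 and 23.2 CPM in GFP-HRAS rapamycin (log2 fold change -3.01 ± 0.566 SE, edgeR adjusted p = 0.00418) with no overlap. The glucose transporter slc2a3a had 0.336, 0.0539 and 0.274 CPM in 7 dpci and 10.5, 26.3 and 0.306 CPM in GFP-HRAS rapamycin, HRAS replicate 3 lying within the injured range (log2 fold change -5.74 ± 1.35 SE, edgeR adjusted p = 0.0124). slc2a3a lost its call without 7 dpci library 2 (adjusted p 0.000265 to 0.0533 over the alternatives). ENO1 (ENSDARG00000013750), an enolase, was lower (log2 fold change -2.29, adjusted p = 0.0143). ENO1 (ENSDARG00000013750) lost its call without GFP-HRAS rapamycin library 2 or without 7 dpci library 1 or 3 or when these 6 libraries were fitted on their own (adjusted p 0.000463 to 0.0665 over the alternatives). The fourth lower gene, named after its value was seen, was SLC2A1 (ENSDARG00000007412) (log2 fold change -1.0, adjusted p = 0.00129), a glucose transporter. The 3 higher genes, named after their values were seen, were PFKM (2.59), PKM (ENSDARG00000099860) (1.92) and PGAM2 (0.76), with adjusted p of 0.0171, 0.0148 and 0.0109. PFKM lost its call without 7 dpci library 1 (adjusted p 0.00106 to 0.0695 over the alternatives). PKM (ENSDARG00000099860) lost its call without GFP-HRAS rapamycin library 2 or without 7 dpci library 2 (adjusted p 0.000735 to 0.0683 over the alternatives). In sterol and fatty acid synthesis 5 of 27 were lower and 0 higher. The receptor ldlrb, which takes up cholesterol, was lower (log2 fold change -2.77 ± 0.569 SE, edgeR adjusted p = 0.00654). ldlrb lost its call when these 6 libraries were fitted on their own (adjusted p 2e-05 to 0.0532 over the alternatives). The regulator of sterol genes, srebf2, was lower too (log2 fold change -0.63 ± 0.205 SE, edgeR adjusted p = 0.0481). srebf2 lost its call without GFP-HRAS rapamycin library 1 or 2 or without 7 dpci library 1, 2 or 3, with library totals in place of TMM scaling, without the mitochondrially encoded genes, with no expression filter, with the stricter filter or when these 6 libraries were fitted on their own (adjusted p 0.0071 to 0.19 over the alternatives). SCD, a desaturase named after its value was seen, was lower as well (log2 fold change -2.19, adjusted p = 0.0356, lost without GFP-HRAS rapamycin library 1 or 2 or without 7 dpci library 1, 2 or 3, when these 6 libraries were fitted on their own or with the replicate block). Its groups overlapped, with 0.479, 0.593 and 1.04 CPM in 7 dpci and 3.49, 5.21 and 0.978 CPM in GFP-HRAS rapamycin.

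Endothelial genes went both ways: 7 were higher and 5 lower of 37 (median -0.14). kdrl, the VEGF receptor of endothelium, had 174, 184 and 224 CPM in 7 dpci and 171, 219 and 279 CPM in GFP-HRAS rapamycin (log2 fold change -0.20, adjusted p = 0.483), and the junction protein cdh5 329, 312 and 369.7 CPM in 7 dpci and 351, 319 and 337 CPM in GFP-HRAS rapamycin (0.01, adjusted p = 0.984). Both overlapped. Compared with RFP DMSO hearts, the log2 fold change of kdrl was -1.24 (edgeR adjusted p = 0.000547) in 7 dpci and -1.04 (adjusted p = 0.00224) in GFP-HRAS rapamycin. That of cdh5 was -0.77 (edgeR adjusted p = 0.00334) in 7 dpci and -0.78 (adjusted p = 0.00501) in GFP-HRAS rapamycin. Named after their values were seen, the other lower genes were flt1 (log2 fold change -2.23, adjusted p = 0.00442), VEGFA (ENSDARG00000103542) (log2 fold change -1.32, adjusted p = 0.00689, lost when these 6 libraries were fitted on their own), EGFL7 (log2 fold change -1.02, adjusted p = 0.0344, lost without GFP-HRAS rapamycin library 2 or 3 or without 7 dpci library 1, 2 or 3, when these 6 libraries were fitted on their own or with the replicate block) and APLN (log2 fold change -0.66, adjusted p = 0.0221, lost without GFP-HRAS rapamycin library 2 or without 7 dpci library 1 or 3 or with library totals in place of TMM scaling), all of blood vessel growth. klf2b, a factor induced by blood flow, was lower, with 23.2, 24.1 and 82.7 CPM in 7 dpci and 189.8, 356 and 235 CPM in GFP-HRAS rapamycin (log2 fold change -2.59 ± 0.597 SE, edgeR adjusted p = 0.0112). klf2b lost its call without 7 dpci library 1 or 2 (adjusted p 0.000103 to 0.0531 over the alternatives). The apelin receptor aplnrb was higher (log2 fold change 1.79 ± 0.477 SE, edgeR adjusted p = 0.0214). aplnrb lost its call without GFP-HRAS rapamycin library 2 or without 7 dpci library 1 or 2 (adjusted p 0.00255 to 0.0849 over the alternatives). Of 18 smooth muscle genes 3 were higher and 1 lower; MYLK (ENSDARG00000034801), myosin light chain kinase, was higher (log2 fold change 1.42, adjusted p = 0.0327). MYLK (ENSDARG00000034801) lost its call without GFP-HRAS rapamycin library 2 or 3 or without 7 dpci library 1, 2 or 3, when these 6 libraries were fitted on their own or with the replicate block (adjusted p 0.00173 to 0.124 over the alternatives). Transgelin, TAGLN (ENSDARG00000033466), was lower (-1.29, adjusted p = 0.017). TAGLN (ENSDARG00000033466) lost its call without GFP-HRAS rapamycin library 2 or without 7 dpci library 1 or 3 (adjusted p 0.00207 to 0.0772 over the alternatives). Its paralogue TAGLN (ENSDARG00000045408) had 150, 132 and 174 CPM in 7 dpci and 1943, 609 and 57.8 CPM in GFP-HRAS rapamycin. This paralogue (-2.51), CNN1 (-2.11) and acta2 (-1.11) overlapped and were not called (edgeR adjusted p = 0.051, 0.0525 and 0.0658). These 3, named after their values were seen, passed as lower in DESeq2 and without GFP-HRAS rapamycin library 3. At an unadjusted p under 0.05, 6 genes of the list were higher and 5 lower. The other higher genes, named after their values were seen, were RGS5 (log2 fold change 2.25, adjusted p = 0.0109, lost without GFP-HRAS rapamycin library 2 or without 7 dpci library 3) and LMOD1 (ENSDARG00000056111) (log2 fold change 3.56, adjusted p = 0.025, lost without GFP-HRAS rapamycin library 1, 2 or 3 or without 7 dpci library 1, 2 or 3), genes of pericytes and of smooth muscle.

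Markers of neighbouring tissues were measured beside these results. In the atrium list 2 were higher and 2 lower of 10; the lower ones are nppa and TBX5, and one of the higher is BMP10 (ENSDARG00000061769), a ligand of trabecular cardiomyocytes (log2 fold change 1.40 ± 0.352 SE, edgeR adjusted p = 0.0165). BMP10 (ENSDARG00000061769) lost its call without GFP-HRAS rapamycin library 2 or without 7 dpci library 2 (adjusted p 0.00158 to 0.068 over the alternatives). The other higher one is NR2F1 (ENSDARG00000052695), an atrial transcription factor (log2 fold change 1.28 ± 0.288 SE, edgeR adjusted p = 0.00983). The atrial myosin myh6 had 243, 226 and 101 CPM in 7 dpci and 184, 361 and 145 CPM in GFP-HRAS rapamycin and was not called (adjusted p = 0.757). The 14 matched skeletal muscle genes summed to 4587 to 5370.5 CPM in 7 dpci and 1476 to 10409 CPM in GFP-HRAS rapamycin, and overlapped. The 2 ACTA1 genes made up most of each sum. Of the 14 genes myhz2, a skeletal myosin named after its values were seen, was at 1.77, 1.24 and 1.42 CPM in 7 dpci and 0.0499, 0.133 and 0 CPM in GFP-HRAS rapamycin (adjusted p = 0.00405). ckmb was higher (log2 fold change 1.73, adjusted p = 0.0223). ckmb lost its call without GFP-HRAS rapamycin library 1 or 2 or without 7 dpci library 1 or 3 or when these 6 libraries were fitted on their own (adjusted p 0.00322 to 0.0857 over the alternatives). Their part in the sarcomere results was not tested. In the liver list 1 of 4 tested was higher: RBP4, a carrier of retinol (log2 fold change 1.53 ± 0.361 SE, edgeR adjusted p = 0.0126). RBP4 lost its call without GFP-HRAS rapamycin library 2 (adjusted p 0.000638 to 0.0592 over the alternatives). The plasma protein tfa had 242, 652 and 228 CPM in 7 dpci and 143, 35.4 and 56.1 CPM in GFP-HRAS rapamycin and was not called (adjusted p = 0.0706). tfa passed the threshold without GFP-HRAS rapamycin library 1 or with the replicate block (adjusted p 0.0463 to 0.244 over the alternatives).

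The remaining genes at the ends of the comparison had varied functions. Among the 15 largest, the cytochrome P450 gene cyp2ad2 had 11.7, 19.2 and 13.1 CPM in 7 dpci and 0.0998, 0.0667 and 1.22 CPM in GFP-HRAS rapamycin (log2 fold change 4.99 ± 1.01 SE, edgeR adjusted p = 0.00627). edn1, endothelin 1, a vasoconstrictor peptide, had 16.5, 19.3 and 11.5 CPM in 7 dpci and 0.599, 0.934 and 1.83 CPM in GFP-HRAS rapamycin (log2 fold change 3.82 ± 0.723 SE, edgeR adjusted p = 0.00429). olfm4l2 reached 42.0, 62.5 and 59.2 CPM in 7 dpci and 3.34, 2.74 and 3.30 CPM in GFP-HRAS rapamycin (log2 fold change 4.12 ± 0.758 SE, edgeR adjusted p = 0.00374). VSNL1, a neuronal calcium sensor, had 32.2, 3.93 and 5.14 CPM in 7 dpci and 0.748, 0.734 and 0.306 CPM in GFP-HRAS rapamycin (log2 fold change 4.51 ± 0.819 SE, edgeR adjusted p = 0.00352), with injured replicate 1 well above the other 2. The gene si:ch211-5k11.8 had 576, 676 and 290.2 CPM in 7 dpci and 34.6, 14.8 and 38.4 CPM in GFP-HRAS rapamycin (log2 fold change 4.13 ± 0.633 SE, edgeR adjusted p = 0.00154). None of these 5 overlapped between the groups, which the rule that picked them required. Against the RFP DMSO libraries, the log2 fold change of cyp2ad2 was 1.07 (edgeR adjusted p = 0.311) in 7 dpci and -3.92 (adjusted p = 0.0118) in GFP-HRAS rapamycin. That of edn1 was -1.17 (edgeR adjusted p = 0.149) in 7 dpci and -4.99 (adjusted p = 0.000874) in GFP-HRAS rapamycin, so in both the lower HRAS level, not a higher injured level, passed the test against RFP DMSO.

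Among the 15 smallest, rln3a, a relaxin peptide, had 0.431, 0.593 and 0.164 CPM in 7 dpci and 18.8, 70.6 and 9.96 CPM in GFP-HRAS rapamycin (log2 fold change -6.35 ± 1.04 SE, edgeR adjusted p = 0.00204). SERPINI1, a neuronal serine protease inhibitor, had 0.192, 0.269 and 0.383 CPM in 7 dpci and 27.0, 37.0 and 3.48 CPM in GFP-HRAS rapamycin (log2 fold change -6.30 ± 1.29 SE, edgeR adjusted p = 0.00654). Both were near 0 in the injured hearts. SALL1 (ENSDARG00000075891), a developmental zinc-finger factor, had 1.1, 2.26 and 1.48 CPM in 7 dpci and 30.3, 88.9 and 2.63 CPM in GFP-HRAS rapamycin (log2 fold change -4.65 ± 0.858 SE, edgeR adjusted p = 0.00382), and jac2 had 0.336, 1.56 and 0.0547 CPM in 7 dpci and 34.6, 6.41 and 3.85 CPM in GFP-HRAS rapamycin (log2 fold change -4.52 ± 0.946 SE, edgeR adjusted p = 0.00708). The unconventional myosin myo1hb had 4.51, 7.06 and 2.74 CPM in 7 dpci and 96.2, 92.9 and 130.0 CPM in GFP-HRAS rapamycin (log2 fold change -4.48 ± 0.811 SE, edgeR adjusted p = 0.00351). The 3 genes did not overlap, as their selection required, and myo1hb was the only one of them with an even level over the HRAS libraries. SLC35G2 (ENSDARG00000056262) had a log2 fold change of -5.04 (edgeR adjusted p = 0.0167). SLC35G2 lost its call without 7 dpci library 1, 2 or 3 (adjusted p 0.000631 to 0.0664 over the alternatives). SYT4, a synaptotagmin of vesicle release, gave -4.87 (adjusted p = 0.0103). SYT4 lost its call without 7 dpci library 1 (adjusted p 5.86e-06 to 0.0516 over the alternatives). Relative to RFP DMSO, the log2 fold change of rln3a was 0.93 (edgeR adjusted p = 0.603) in 7 dpci and 7.29 (adjusted p = 0.00102) in GFP-HRAS rapamycin, while SALL1 had 1.0 count in the RFP DMSO libraries, and myo1hb 0.03 (edgeR adjusted p = 0.979) in 7 dpci and 4.51 (adjusted p = 0.00226) in GFP-HRAS rapamycin.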

How the data were processed

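The labels' protocols give QIAzol extraction, a column clean-up with DNase, and CORALL mRNA libraries. HISAT2 2.1.0, UMI-tools 1.1.1, featureCounts 1.6.0 and the GRCz11 genome were used per the submitters' processing notes. The annotation release and the strand setting are not stated there, so antisense or overlapping genes and near-identical paralogues are uncertain. The authors deposited raw counts per gene in 2 tables of 32520 identifiers each. Columns whose names start with UR were taken as UAS:RFP, and the 3 uninjured samples were not analysed here. Groups came from the labels.

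The tables were joined on the identifier and the 15 libraries were fitted together in R 4.3.3 with edgeR 4.0.16: filterByExpr by group, TMM scaling, glmQLFit and glmQLFTest with 1 mean per group and no block. Benjamini-Hochberg adjustment ran over 16421 genes, and the procedure was tested on simulated data. The SE of a log2 fold change is its size divided by the square root of F. log2 CPM used a prior count of 2. The 15861618 to 20003711 counts per library set the precision, and the floor of 3 counts covers counting error only. The 14 alternatives used other scalings (among them DESeq2 size factors), filters, DESeq2 1.42.0, a replicate block, these 6 libraries on their own, and each library left out.

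Symbols came from a table that named 29201 identifiers, many in human style, so paralogues can share one. The 44 gene lists hold 1148 symbols. Exact matches numbered 379, with 466 more by case, 230 by family symbol and 10 by alias, while 61 found no gene and 2 found more than 3. Members and lists were chosen with earlier results of these data known. Genes named are the 15 largest and 15 smallest log2 fold changes among called genes with groups that did not overlap and at least 10 CPM in the higher group, up to 3 called genes per list with the largest change and that level, and landmark genes whatever their result. Some genes that this rule names are not reported here.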

Additional observations from a re-analysis of the deposited data

How the results depend on the processing

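The 1373 higher and 1673 lower calls became 1362 and 1724 with DESeq2 size factors, 1390 and 1651 without mitochondrially encoded genes, 1147 and 1301 with no filter, 1283 and 1595 with at least 1 CPM in 6 libraries, 1710 and 2205 in DESeq2, and 1245 each in a fit of the 6 libraries alone. Lower calls numbered 965 with library totals. Leaving out 1 library gave 1405 to 3470 calls in all, 648 to 1619 higher, 712 to 1851 lower and 1079 to 2191 at least 2-fold. The mitochondrial share differed by 0.844 to 3.88 percentage points over the same libraries. The replicate numbers did not pair the samples (correlations of same-numbered deviations 0.063, -0.104 and -0.085), and the replicate block gave 2501 calls, 1220 higher and 1281 lower. Of the 130 named genes called, 85 kept their call in all of the 14 alternatives that gave a value, and no named call changed direction. Leaving out 1 library also leaves fewer samples, and the cause of these changes was not tested. With 3 libraries a group and 15861618 counts in the smallest, small differences may not be detectable, and no result separates injury from strain, drug or table.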

Other observations

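The sulfotransferases sult2st1 and sult2st2, enzymes of the family that conjugates steroids, were higher in 7 dpci. sult2st1 measured 57.0, 32.3 and 52.0 CPM in 7 dpci and 3.69, 2.40 and 5.01 CPM in GFP-HRAS rapamycin (log2 fold change 3.66 ± 0.301 SE, edgeR adjusted p = 4.87e-05). sult2st2 had 4.46, 2.37 and 3.28 CPM in 7 dpci and 0.449, 1.13 and 0.306 CPM in GFP-HRAS rapamycin (log2 fold change 2.44 ± 0.475 SE, edgeR adjusted p = 0.00508). The groups did not overlap in either gene. Set against RFP DMSO, which had the same 4-OHT, the log2 fold change of sult2st1 was -0.36 (edgeR adjusted p = 0.302) in 7 dpci and -4.02 (adjusted p = 1.44e-05) in GFP-HRAS rapamycin. The transporter ABCB4 was lower, with 37.9, 32.6 and 56.7 CPM in 7 dpci and 181, 165 and 60.6 CPM in GFP-HRAS rapamycin (log2 fold change -1.68 ± 0.360 SE, edgeR adjusted p = 0.0081), where HRAS replicate 3 stood close to the highest injured library. Of 17 estrogen- and xenobiotic-responsive genes 2 were higher, 2 lower and 13 not called, shares near those over all genes, the remaining call being CYP1A1 (-4.73, edgeR adjusted p = 0.0227, named after its value was seen). CYP1A1 was at 0.0959, 0.0539 and 0.164 CPM in 7 dpci and 7.88, 0.267 and 0.550 CPM in GFP-HRAS rapamycin, where replicate 1 held most of the signal. CYP1A1 lost its call without GFP-HRAS rapamycin library 1 or without 7 dpci library 1, 2 or 3 or with the replicate block (adjusted p 0.000779 to 0.224 over the alternatives). The number lower was 1 without 7 dpci replicate 1, 2 or 3, 1 without GFP-HRAS rapamycin replicate 1, 1 when these 6 libraries were fitted on their own and 1 with the replicate block.

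Clock and glucocorticoid genes gave few calls. PER2, a repressor of the circadian clock, had 44.8, 40.4 and 39.9 CPM in 7 dpci and 118, 128 and 139 CPM in GFP-HRAS rapamycin (log2 fold change -1.62 ± 0.157 SE, edgeR adjusted p = 0.000133). NR1D2, another clock repressor, had 196, 174 and 168 CPM in 7 dpci and 92.8, 83.0 and 45.1 CPM in GFP-HRAS rapamycin (log2 fold change 1.28 ± 0.285 SE, edgeR adjusted p = 0.00938). Each was fully apart, in opposite directions, and 1 of 28 clock genes was higher and 2 lower. The other lower one, named after its value was seen, was BHLHE41 (log2 fold change -2.45, adjusted p = 0.0378, lost without GFP-HRAS rapamycin library 1 or 2 or without 7 dpci library 1 or 2, with library totals in place of TMM scaling, when these 6 libraries were fitted on their own or with the replicate block). Of 15 glucocorticoid-responsive genes 0 were higher and 2 lower. zbtb16b, a glucocorticoid-induced factor, had 3.69, 2.53 and 10.01 CPM in 7 dpci and 17.0, 32.0 and 27.5 CPM in GFP-HRAS rapamycin (log2 fold change -2.24 ± 0.487 SE, edgeR adjusted p = 0.00865), and its relative ZBTB16 was lower too (log2 fold change -1.86, adjusted p = 0.0166). ZBTB16 lost its call without GFP-HRAS rapamycin library 2 or without 7 dpci library 1, 2 or 3 (adjusted p 0.00101 to 0.0698 over the alternatives). FKBP5, a glucocorticoid target, had 13, 34.1 and 264 CPM in 7 dpci and 309, 569 and 527 CPM in GFP-HRAS rapamycin, with a wide spread among the injured libraries, and was not called (adjusted p = 0.157). FKBP5 passed the threshold without 7 dpci library 3 (adjusted p 0.0278 to 0.35 over the alternatives). KLF9 had 1.68, 5.44 and 24.9 CPM in 7 dpci and 9.68, 35.1 and 127 CPM in GFP-HRAS rapamycin and was not called either (adjusted p = 0.142). The PER1 genes ENSDARG00000012499 and ENSDARG00000056885 were not called (log2 fold changes 0.52 and -0.06, adjusted p = 0.516 and 0.952). The labels give no hour of sampling.

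Of 38 autophagy and lysosome genes 4 were higher and 2 lower (median 0.01), beside 8.36% and 10.2% of all genes tested. The lysosomal proteases CTSK, known for breaking down collagen, and CTSZ were higher, with 129, 132 and 120.2 CPM in 7 dpci and 52.7, 49.7 and 42.4 CPM in GFP-HRAS rapamycin for CTSK (log2 fold change 1.40 ± 0.167 SE, edgeR adjusted p = 0.000629) and a log2 fold change of 1.24 for CTSZ (adjusted p = 0.00149). The proton pump subunit ATP6V0C (ENSDARG00000036577) was lower, with 28.2, 23.0 and 27.4 CPM in 7 dpci and 56.0, 54.1 and 46.9 CPM in GFP-HRAS rapamycin (log2 fold change -1.0 ± 0.135 SE, edgeR adjusted p = 0.000871). No library of these 3 genes crossed into the other group. The other calls, named after their values were seen, were the higher LIPA (log2 fold change 0.88, adjusted p = 0.00953) and TFEC (log2 fold change 1.84, adjusted p = 0.0117, lost without GFP-HRAS rapamycin library 2) and the lower SQSTM1 (log2 fold change -0.89, adjusted p = 0.0285, lost without GFP-HRAS rapamycin library 2 or 3 or without 7 dpci library 1, 2 or 3, with library totals in place of TMM scaling or when these 6 libraries were fitted on their own). In the neuron and glia list 1 of 4 was higher and 1 lower; the lower was ELAVL4, an RNA-binding protein of neurons (log2 fold change -1.42 ± 0.400 SE, edgeR adjusted p = 0.0265). ELAVL4 lost its call without GFP-HRAS rapamycin library 3 or without 7 dpci library 1, 2 or 3 (adjusted p 0.00526 to 0.0934 over the alternatives). The higher was SOX10, a factor of neural crest and glia (log2 fold change 1.97, adjusted p = 0.0221, named after its value was seen), with 1.29, 3.72 and 1.42 CPM in 7 dpci and 0.599, 0.467 and 0.550 CPM in GFP-HRAS rapamycin. Its 7 dpci replicate 2 was the highest. SOX10 lost its call without GFP-HRAS rapamycin library 2 or without 7 dpci library 2 (adjusted p 0.00928 to 0.129 over the alternatives).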
